A study of Homo sapiens with 36 samples.

Results

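The genes described here are 35 that make cholesterol and fatty acids or regulate their synthesis and that are controlled by the sterol regulatory element-binding proteins (SREBPs). They were taken from the table of expected counts by their symbols, and all 35 were among the 37549 symbols of the table. The 36 libraries came from 3 human lymphoid cell lines established from B-cell leukaemia, MEC1 (p53 mutated), JVM2 and EHEB (both p53 wild-type). Each line was exposed to DMSO (the vehicle, whose libraries also carry the label CTRL), 50 µM fludarabine, 5 µM ibrutinib or 10 µM idelalisib. In the paper's viability assays of control MEC1 and JVM2 cells, the half-maximal inhibitory concentrations of these drugs lay below these doses. Whether reduced viability has a part in the differences below was not tested. The drugs were left on MEC1 cells for 48 h, JVM2 cells for 72 h and EHEB cells for 96 h, and each group held 3 libraries. Fludarabine is a purine nucleoside analogue, ibrutinib inhibits Bruton tyrosine kinase and idelalisib inhibits the delta form of phosphoinositide 3-kinase. The comparisons asked how each drug changed expression in each line. Exposure time differed with the line, so line and time cannot be told apart. The study's methods describe its results in general as coming from independent experiments, and no label ties the 3 libraries of a group to separate cultures, so p-values measure the spread between these libraries, part of which may be technical.

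Cells control their sterol content through SREBPs, which are made as inactive precursors in the membrane of the endoplasmic reticulum. When sterols are scarce, the escort protein SCAP carries the precursor to the Golgi, proteases release its active fragment, and the fragment switches on genes in the nucleus. When sterols are plentiful, the INSIG proteins hold SCAP back. SREBP2 mainly serves the genes of cholesterol synthesis, and SREBP1 those of fatty acid synthesis, and both lipid classes are needed by proliferating B cells for new membrane.

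The libraries held 26590705 to 53538925 assigned counts (median 42114146), and the precision given by this depth covers counting error only. All 7 B-cell markers examined were at 1 CPM (counts scaled by library size) or more in all 36 libraries, and the range of their summed level differed between treatments. With DMSO, fludarabine, ibrutinib and idelalisib in that order it was 1130 to 1204, 971 to 985, 1853 to 2031 and 1846 to 1924 CPM in MEC1, 1335 to 1361, 719 to 779.5, 1470 to 1534 and 1495 to 1548 CPM in JVM2 and 1686 to 1764, 989 to 1103, 1667 to 1813 and 1713 to 1737 CPM in EHEB. The myeloid markers summed, in the same order, to 6.81 to 8.59, 25.1 to 28.7, 29.7 to 33.2 and 42.6 to 45.6 CPM in MEC1, 10.6 to 13.6, 39.2 to 40.4, 17.1 to 18.8 and 36.04 to 39.4 CPM in JVM2 and 20.1 to 24.5, 53.5 to 63.8, 21.6 to 23.9 and 23.4 to 27.2 CPM in EHEB. ITGAM was the only myeloid marker at 1 CPM or more in all libraries of a line, and it was so in each line. The T and NK cell markers summed to 0.34 to 17.3 CPM, with CD3D at 0 in MEC1 and JVM2. CD3E and CD2 were at 1 CPM or more in all EHEB libraries. In MEC1 the T and NK sum was 3.07 to 3.53 CPM with DMSO and 10.3 to 11.4 CPM with fludarabine. In EHEB it was 12.2 to 16.4 CPM with DMSO, 6.31 to 7.59 CPM with ibrutinib and 4.26 to 6.83 CPM with idelalisib. Fibroblast and endothelium markers, with DMSO and fludarabine, summed to 6.59 to 9.66 and 25.7 to 27.2 CPM in MEC1. They summed to 76.9 to 85.99 and 25.03 to 28.7 CPM in JVM2 and 18.7 to 19.9 and 4.1 to 6.21 CPM in EHEB. The epithelial marker KRT8 was at 1 CPM or more in all JVM2 libraries. Mitochondrially encoded transcripts took 0.396% to 0.608% of the counts in the MEC1 DMSO libraries and 0.792% to 1.06% with fludarabine, 0.420% to 0.467% and 0.768% to 1.16% in JVM2, and 1.27% to 1.66% and 2.28% to 2.66% in EHEB in the same order. With ibrutinib and idelalisib the share also lay above the DMSO range in MEC1 (0.682% to 0.862% and 0.913% to 0.958%) and JVM2 (0.679% to 0.828% and 0.886% to 1.02%), and idelalisib overlapped it in EHEB (1.45% to 2.05%). Whether these marker sums or this share have a part in the differences below was not tested. The titles number the DMSO and fludarabine libraries in 1 run (MEC1_37 to MEC1_48, JVM2_85 to JVM2_96 and EHEB_133 to EHEB_144) and the kinase inhibitor libraries in another (MEC1_184 to MEC1_192, JVM2_232 to JVM2_240 and EHEB_280 to EHEB_288) that held no DMSO library. An effect of either inhibitor and a difference between these runs therefore cannot be told apart, except between idelalisib and ibrutinib. The 3 drugs of a line shared their 3 DMSO libraries, so their 3 comparisons are not independent of each other. In bulk RNA, fewer cells expressing a gene and less RNA per cell cannot be told apart.

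With DMSO alone, the pathway was most abundant in MEC1. The 35 genes took 0.885% ± 0.039 of all counts in the MEC1 DMSO libraries (mean ± SD, n = 3), 0.277% ± 0.0076 in JVM2 and 0.323% ± 0.0069 in EHEB. All MEC1 DMSO libraries lay above all DMSO libraries of both other lines for 29 of the 35 genes, against 26.9% of all 17483 genes expressed in DMSO libraries. The median ratio of MEC1 to JVM2 was 3.46 over the 34 genes with counts in MEC1, against 1.11 over all such genes with counts in both, and that of MEC1 to EHEB over the 34 genes was 2.44, against 1.09. Levels in this paragraph are CPM on the total counts of each library, not rescaled between lines. SCD, the desaturase that makes oleate from stearate, stood at 1884 ± 148 CPM in MEC1, 288.5 ± 6.68 CPM in JVM2 and 200.2 ± 5.42 CPM in EHEB, so that MEC1 was 6.53-fold and 9.41-fold higher. HMGCS1, which makes the direct precursor of mevalonate, stood at 351 ± 18.1 CPM in MEC1, 45.9 ± 2.90 CPM in JVM2 and 99.7 ± 1.33 CPM in EHEB. Per kilobase of the canonical transcript, SCD ranked highest of the 35 genes in MEC1 (359 CPM per kb), the elongase ELOVL5 in JVM2 (77.3 CPM per kb) and the squalene synthase FDFT1 in EHEB (73.3 CPM per kb). ME1, the cytosolic malic enzyme, had no count in any MEC1 library and 31.2 ± 1.02 CPM in JVM2 and 12.7 ± 1.57 CPM in EHEB with DMSO, so only 34 of the genes were tested in MEC1 and all 35 in each other line.

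**Figure D1:**
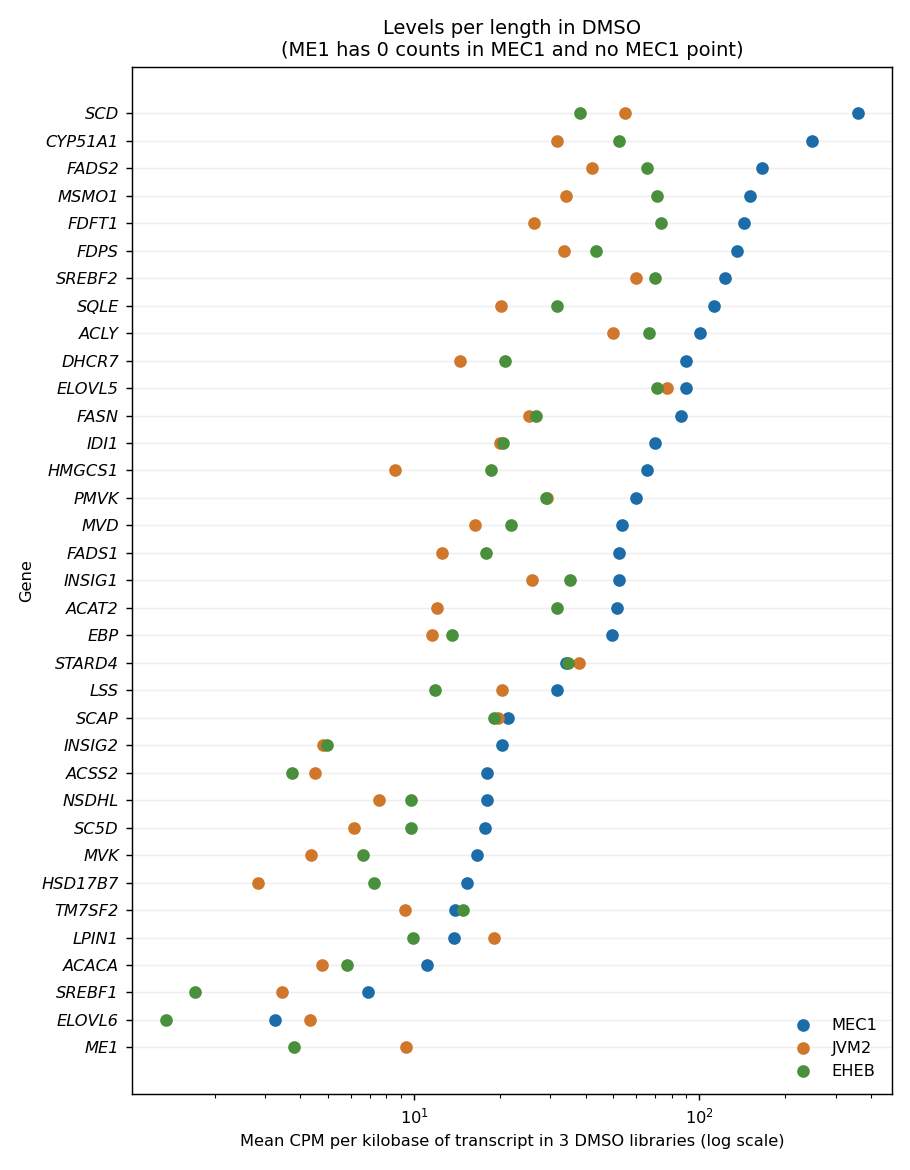
Mean level of each gene in the 3 DMSO libraries of MEC1, JVM2 and EHEB, in CPM per kilobase of transcript on a log axis, with 1 point per line and gene and genes ordered by MEC1. The MEC1 point lies to the right of the others for most genes, up to 359 CPM per kb for SCD, against 55.01 in JVM2 and 38.2 in EHEB.

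Across the 3 lines, more of the genes were called lower than higher with every drug, except that JVM2 with fludarabine and with ibrutinib had more higher than lower without the TMM step (trimmed mean of M-values) in scaling the libraries. A gene was called where edgeR's quasi-likelihood test gave an adjusted p under 0.05 over all genes tested. In MEC1, with fludarabine, 1 was called higher (21.2% of all genes tested) and 26 lower (22.7%), and the median log2 fold change of the genes was −0.61, against 0.056 over all genes. With ibrutinib 2 were higher (23.7% of all genes tested) and 18 lower (23.9%), and the median log2 fold change of the genes was −0.25, against 0.060 over all genes. With idelalisib 4 were higher (27.6% of all genes tested) and 24 lower (27.4%), and the median log2 fold change of the genes was −0.38, against 0.081 over all genes. The counts higher in MEC1 became 2 with fludarabine without library MEC1_37 or MEC1_47, 1 with ibrutinib without MEC1_37, MEC1_38, MEC1_184 or MEC1_186, and 2 with idelalisib without MEC1_37, MEC1_190 or MEC1_192. The 3 MEC1 shares of genes called lower all lay well above the share of all genes, and the shares called higher lay below it. In JVM2 the shares lay closer to the background. Fludarabine there gave 7 of the genes higher (23.9% of all genes tested) and 11 lower (23.3%), and the median log2 fold change of the genes was −0.14, against 0.056 over all genes. Ibrutinib gave 6 of them higher (14.5% of all genes tested) and 8 lower (15%), with a median of 0.039 against −0.0014. Idelalisib gave 3 of them higher (21.6% of all genes tested) and 14 lower (22.6%), with a median of −0.19 against 0.026. In JVM2, the 11 lower with fludarabine became 7 without library JVM2_85 and 7 with no filter on low counts, and the 6 higher with ibrutinib became 3 without library JVM2_85 or JVM2_86 and 2 with no filter. In EHEB, fludarabine gave 6 of the genes higher (18.4% of all genes tested) and 18 lower (19.2%), with a median of −0.20 against 0.020. Ibrutinib gave 1 of them higher (8.5% of all genes tested) and 17 lower (11.2%), with a median of −0.28 against 0.0095. Idelalisib gave 3 of them higher (15.1% of all genes tested) and 21 lower (18.2%), with a median of −0.45 against 0.013. The 1 gene higher in EHEB with ibrutinib became 2 without library EHEB_133 or EHEB_282. The share of all counts taken by the 35 genes was 0.660% ± 0.0067 with fludarabine, 0.694% ± 0.043 with ibrutinib and 0.553% ± 0.010 with idelalisib for MEC1, all below the DMSO libraries. In EHEB it was 0.292% ± 0.0073, 0.281% ± 0.0084 and 0.251% ± 0.0043 in the same order. In JVM2 it was 0.286% ± 0.0046, 0.271% ± 0.0086 and 0.245% ± 0.0051, and the fludarabine and ibrutinib libraries overlapped the DMSO range. Without the TMM step 13 of the genes were higher and 3 lower with fludarabine in JVM2, against 6155 and 2752 of all 17508 genes tested. The median over all genes there moved from 0.056 to 0.26. In the same line that scaling gave 8 higher and 6 lower with ibrutinib, against 3259 and 1978 over all genes. With idelalisib it gave 5 higher and 13 lower, against 4651 and 3166. In MEC1 it gave 5 higher and 21 lower with fludarabine, against 6052 and 2113 of all 17516 genes tested. The median over all genes there moved from 0.056 to 0.31. With ibrutinib in MEC1 it gave 5 higher and 13 lower, against 4694 and 3565. In EHEB it gave 6 higher and 11 lower with fludarabine, against 4228 and 2611 of all 17748 genes tested. With ibrutinib in EHEB it gave 3 higher and 12 lower, against 2524 and 1334.

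**Figure D2:**
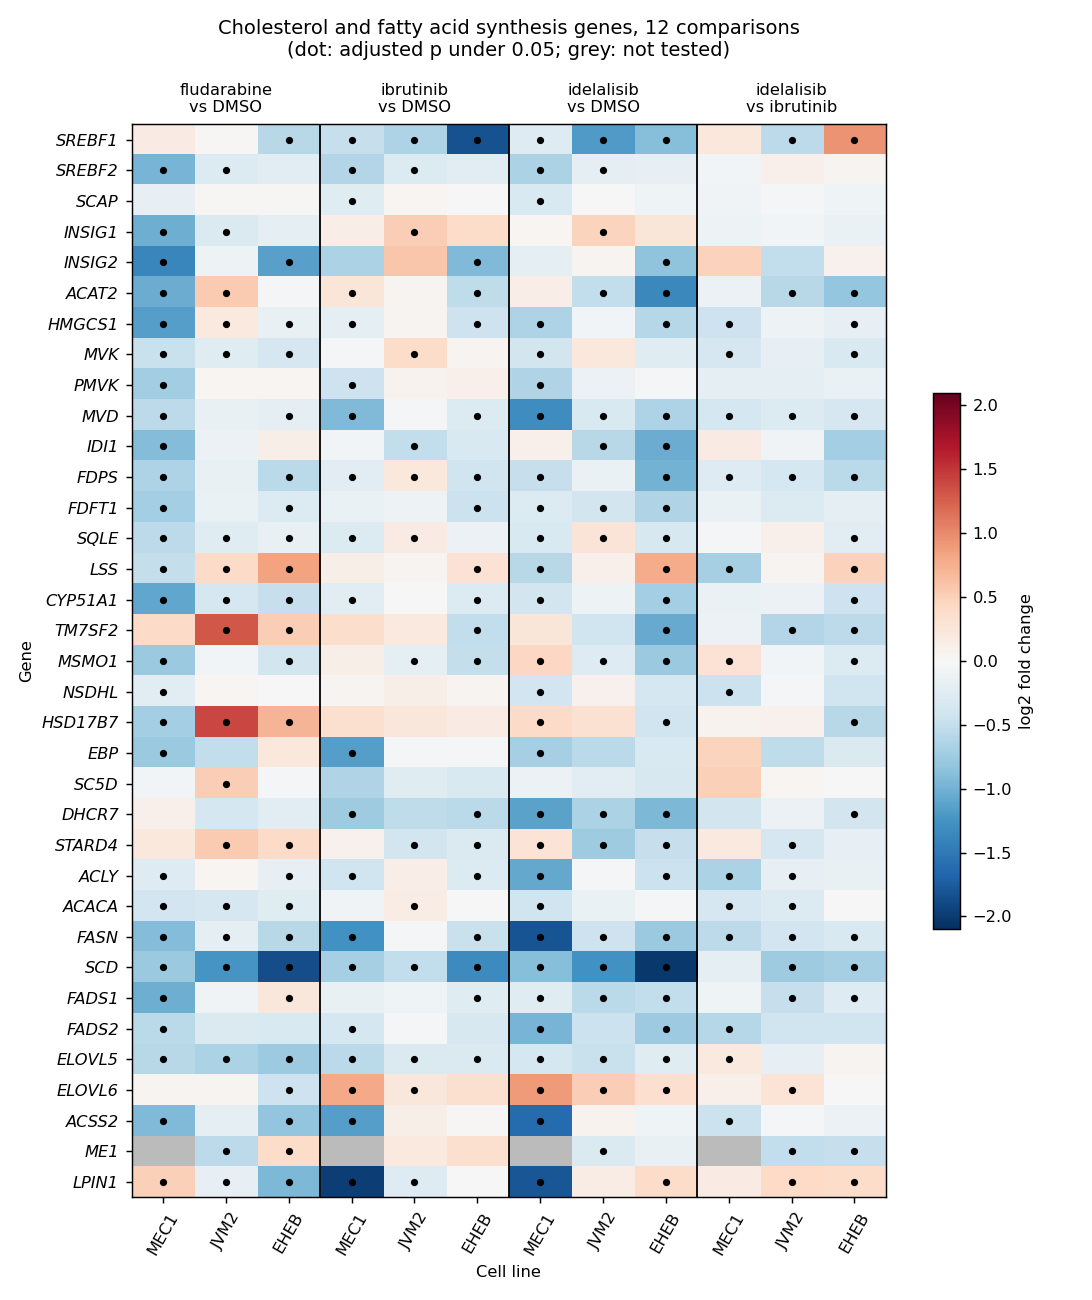
Log2 fold change of the 35 genes (rows) in 12 comparisons (columns), 9 of a drug with DMSO and 3 of idelalisib with ibrutinib. Blue is lower and red is higher, a dot marks an adjusted p under 0.05, and grey marks ME1 in MEC1, which was not tested. The SCD and ELOVL5 rows are blue and dotted in all 9 comparisons with DMSO, and the ELOVL6 row is red and dotted in 5.

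Of the SREBP genes and their regulators, SREBF2 was called lower with each drug in MEC1 and JVM2, and SREBF1 with both kinase inhibitors in all 3 lines. Levels by library here and below are CPM on TMM-scaled library sizes, given in the order of the library numbers, and each log2 fold change is the drug against DMSO ± SE. SREBF2 encodes SREBP2. Levels of SREBF2 in MEC1 were 685, 705 and 617 CPM with DMSO, 343, 359 and 316 with fludarabine, 465, 399 and 442 with ibrutinib and 379, 444 and 439 with idelalisib. By library, no drug library reached the DMSO range, and all were lower. SREBF2 fell in MEC1 with fludarabine, ibrutinib and idelalisib (log2 fold change −0.98 ± 0.086, −0.62 ± 0.085 and −0.67 ± 0.085, adjusted p = 4.97e-06 to 1.21e-04). SREBF2 in JVM2 was measured at 337, 333 and 339 CPM with DMSO, 299, 262 and 270.1 with fludarabine, 273, 277 and 276 with ibrutinib and 288.2, 303 and 295 with idelalisib. For SREBF2 in JVM2, every drug library was lower than the lowest DMSO library. SREBF2 fell in JVM2 with fludarabine, ibrutinib and idelalisib (log2 fold change −0.28 ± 0.048, −0.29 ± 0.048 and −0.19 ± 0.048, adjusted p = 5.84e-04 to 0.00839). With fludarabine in JVM2, 3 of the genes were lower without the TMM step, and SCD, ELOVL5 and ME1 fell further than SREBF2. That call of SREBF2 may therefore depend on scaling. In EHEB, SREBF2 lay at 372, 359.9 and 429 CPM with DMSO, 325, 346 and 321 with fludarabine, 331, 287.6 and 364 with ibrutinib and 360.5, 336 and 332 with idelalisib. The fludarabine libraries lay below every DMSO library and those with ibrutinib and idelalisib overlapped the DMSO range. The log2 fold change of SREBF2 in EHEB was −0.23 ± 0.088 with fludarabine, −0.24 ± 0.088 with ibrutinib and −0.18 ± 0.088 with idelalisib, and none passed the test. A single member promoter of the 44 matched, that of SREBF2, held the sterol regulatory element letters TCACNCCAC, where N is any base, on either strand. The 44 were RefSeq promoter windows of 31 of the 35 genes, each running from 250 bases before to 50 bases after the start on GRCh38.p14. The site is shown because it lies in the gene whose protein reads such elements. It stands on the plus strand at chr22:41832962-41832991 and upstream of the start, with the match in capitals.
SREBF2: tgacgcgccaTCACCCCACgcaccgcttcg
The letters TCACNCCAC stood in 1.13% of all 35116 promoters and in 2.27% of the 44. ACAT2, FASN, FDFT1 and SQLE had no promoter in the table.

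SREBF1 encodes SREBP1. Levels of SREBF1 in MEC1 were 37.8, 33.9 and 33.8 CPM with DMSO, 40.4, 37.3 and 41.9 with fludarabine, 27.5, 22.9 and 24.95 with ibrutinib and 26.03, 31.5 and 29.9 with idelalisib. For SREBF1 in MEC1, the ibrutinib and idelalisib libraries lay below every DMSO library and those with fludarabine overlapped the DMSO range. SREBF1 fell in MEC1 with ibrutinib and idelalisib (log2 fold change −0.48 ± 0.095 and −0.27 ± 0.095, adjusted p = 0.00145 to 0.0308), and the log2 fold change was 0.18 ± 0.095 with fludarabine, which did not pass. SREBF1 in JVM2 was measured at 16.3, 20.3 and 17.4 CPM with DMSO, 19.1, 16.7 and 19.4 with fludarabine, 11.3, 11.1 and 12.2 with ibrutinib and 7.52, 7.90 and 8.15 with idelalisib. By library, the ibrutinib and idelalisib libraries lay below every DMSO library and those with fludarabine overlapped the DMSO range. SREBF1 fell in JVM2 with ibrutinib and idelalisib (log2 fold change −0.64 ± 0.095 and −1.20 ± 0.096, adjusted p = 3.16e-06 to 5.49e-04), and the log2 fold change was 0.031 ± 0.094 with fludarabine, which did not pass. In EHEB, SREBF1 lay at 10.2, 8.44 and 8.004 CPM with DMSO, 7.10, 4.66 and 5.96 with fludarabine, 2.72, 2.07 and 2.67 with ibrutinib and 5.46, 3.75 and 5.21 with idelalisib. For SREBF1 in EHEB, all drug libraries lay below every DMSO library. SREBF1 fell in EHEB with fludarabine, ibrutinib and idelalisib (log2 fold change −0.59 ± 0.19, −1.83 ± 0.20 and −0.89 ± 0.20, adjusted p = 1.18e-04 to 0.0337). SREBF1 overlaps RAI1 on the other strand, and no source used here states whether counting used strand. The call of SREBF1 in MEC1 with idelalisib was lost without library MEC1_37, MEC1_190 or MEC1_192 (adjusted p = 0.0564 to 0.122) and that in EHEB with fludarabine was lost without library EHEB_133, EHEB_134, EHEB_143 or EHEB_144 (adjusted p = 0.0573 to 0.119).

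INSIG1 and INSIG2 encode the proteins that hold SCAP in the endoplasmic reticulum, and INSIG1 is itself switched on by SREBPs. Levels of INSIG1 in MEC1 were 167, 138 and 169.6 CPM with DMSO, 82.7, 75.6 and 74.2 with fludarabine, 175, 168 and 182 with ibrutinib and 153, 173 and 160.1 with idelalisib. The fludarabine libraries lay below every DMSO library and those with ibrutinib and idelalisib overlapped the DMSO range. INSIG1 fell in MEC1 with fludarabine (log2 fold change −1.03 ± 0.086, adjusted p = 3.54e-06), and the log2 fold change was 0.14 ± 0.085 with ibrutinib and 0.033 ± 0.085 with idelalisib, which did not pass. INSIG1 in JVM2 was measured at 85.2, 74.7 and 82.3 CPM with DMSO, 78.8, 58.8 and 58.8 with fludarabine, 118, 112 and 117 with ibrutinib and 114, 104 and 117 with idelalisib. For INSIG1 in JVM2, the ibrutinib and idelalisib libraries lay above every DMSO library and those with fludarabine overlapped the DMSO range. INSIG1 fell in JVM2 with fludarabine (log2 fold change −0.30 ± 0.11, adjusted p = 0.0364) and rose with ibrutinib and idelalisib (log2 fold change 0.52 ± 0.11 and 0.47 ± 0.11, adjusted p = 0.00382 to 0.00406). In EHEB, INSIG1 lay at 159.6, 87.4 and 77.9 CPM with DMSO, 92.2, 99.01 and 92.5 with fludarabine, 157, 143.3 and 126 with ibrutinib and 133.7, 117 and 134.6 with idelalisib. By library, with each drug the libraries overlapped the DMSO range. The log2 fold change of INSIG1 in EHEB was −0.20 ± 0.22 with fludarabine, 0.39 ± 0.21 with ibrutinib and 0.25 ± 0.21 with idelalisib, and none passed the test. The DMSO library EHEB_133 held the highest INSIG1 level of all EHEB libraries. Levels of INSIG2 in MEC1 were 52.8, 122 and 50.6 CPM with DMSO, 37.1, 18.7 and 31.97 with fludarabine, 38.3, 39.6 and 64.3 with ibrutinib and 94.03, 38.01 and 66.2 with idelalisib. For INSIG2 in MEC1, the fludarabine libraries lay below every DMSO library and those with ibrutinib and idelalisib overlapped the DMSO range. INSIG2 fell in MEC1 with fludarabine (log2 fold change −1.36 ± 0.42, adjusted p = 0.0214), and the log2 fold change was −0.67 ± 0.41 with ibrutinib and −0.19 ± 0.41 with idelalisib, which did not pass. INSIG2 in JVM2 was measured at 22.8, 17.8 and 14.01 CPM with DMSO, 24.4, 14.2 and 11.97 with fludarabine, 34.7, 29.3 and 17.5 with ibrutinib and 13.7, 15.5 and 27.5 with idelalisib. No drug group stood clear of the DMSO range. The log2 fold change of INSIG2 in JVM2 was −0.11 ± 0.35 with fludarabine, 0.58 ± 0.35 with ibrutinib and 0.057 ± 0.35 with idelalisib, and none passed the test. In EHEB, INSIG2 lay at 15.1, 18.2 and 22.5 CPM with DMSO, 7.70, 9.48 and 8.13 with fludarabine, 9.95, 10.3 and 9.08 with ibrutinib and 12.4, 10.1 and 8.77 with idelalisib. For INSIG2 in EHEB, all drug libraries lay below every DMSO library. INSIG2 fell in EHEB with fludarabine, ibrutinib and idelalisib (log2 fold change −1.14 ± 0.16, −0.93 ± 0.16 and −0.84 ± 0.16, adjusted p = 2.22e-04 to 0.00238). INSIG2 was thus called lower with all 3 drugs in EHEB and with fludarabine in MEC1. SCAP, the escort protein, fell in MEC1 with ibrutinib and idelalisib (log2 fold change −0.25 ± 0.068 and −0.32 ± 0.069) and was called in no other comparison with DMSO. The call of INSIG1 in JVM2 with fludarabine was lost without library JVM2_85, JVM2_87, JVM2_95 or JVM2_96 (adjusted p = 0.0903 to 0.132). The call of INSIG2 in MEC1 with fludarabine was lost without library MEC1_38 or MEC1_47 (adjusted p = 0.0788 to 0.109).

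The 7 genes of the mevalonate arm lead from acetyl-CoA to farnesyl diphosphate, the branch point of sterols and other isoprenoids. All 7 fell in MEC1 with fludarabine. Of the 7, the calls were in MEC1 0 higher and 7 lower with fludarabine (21.2% and 22.7% of all genes tested). They were 1 higher and 4 lower with ibrutinib (23.7% and 23.9%) and 0 higher and 5 lower with idelalisib (27.6% and 27.4%). In JVM2 they were 2 higher and 1 lower (23.9% and 23.3%), 2 higher and 1 lower (14.5% and 15%) and 0 higher and 3 lower (21.6% and 22.6%), with the drugs in the same order. In EHEB they were 0 higher and 4 lower (18.4% and 19.2%), 0 higher and 4 lower (8.5% and 11.2%) and 0 higher and 5 lower (15.1% and 18.2%). The median log2 fold change of the 7 genes ran from −0.73 to 0.064 over the 9 comparisons, against −0.0014 to 0.081 over all genes. HMGCS1 encodes the synthase that makes HMG-CoA. Levels of HMGCS1 in MEC1 were 357, 381 and 358 CPM with DMSO, 162, 159.7 and 170.3 with fludarabine, 302, 304 and 339 with ibrutinib and 231.9, 234.2 and 233.7 with idelalisib. By library, no drug library reached the DMSO range, and all were lower. HMGCS1 fell in MEC1 with fludarabine, ibrutinib and idelalisib (log2 fold change −1.16 ± 0.058, −0.21 ± 0.057 and −0.65 ± 0.057, adjusted p = 1.45e-07 to 0.00972). HMGCS1 in JVM2 was measured at 50.9, 46.02 and 50.1 CPM with DMSO, 56.9, 54.2 and 58.9 with fludarabine, 47.8, 54.4 and 49.99 with ibrutinib and 43.4, 46.4 and 51.9 with idelalisib. For HMGCS1 in JVM2, the fludarabine libraries lay above every DMSO library and those with ibrutinib and idelalisib overlapped the DMSO range. HMGCS1 rose in JVM2 with fludarabine (log2 fold change 0.21 ± 0.077, adjusted p = 0.0449), and the log2 fold change was 0.049 ± 0.077 with ibrutinib and −0.053 ± 0.077 with idelalisib, which did not pass. In EHEB, HMGCS1 lay at 105, 105 and 106 CPM with DMSO, 97.1, 89.9 and 95.3 with fludarabine, 77.4, 76.9 and 79.4 with ibrutinib and 72.8, 65.1 and 69.3 with idelalisib. All drug libraries lay below every DMSO library. HMGCS1 fell in EHEB with fludarabine, ibrutinib and idelalisib (log2 fold change −0.16 ± 0.053, −0.43 ± 0.053 and −0.61 ± 0.053, adjusted p = 7.92e-06 to 0.0345). With fludarabine HMGCS1 was therefore called higher in JVM2 and lower in both other lines. Its calls in JVM2 and EHEB were lost when single libraries were left out, as given below.

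ACAT2, the cytosolic thiolase that joins the first pair of acetyl-CoA molecules, moved in both directions. Levels of ACAT2 in MEC1 were 83.04, 74.9 and 87.1 CPM with DMSO, 40.4, 37.99 and 41.2 with fludarabine, 99.9, 94.3 and 99.1 with ibrutinib and 96.2, 77.7 and 94.9 with idelalisib. For ACAT2 in MEC1, the fludarabine libraries lay below every DMSO library, those with ibrutinib above and those with idelalisib overlapped the DMSO range. ACAT2 fell in MEC1 with fludarabine (log2 fold change −1.04 ± 0.089, adjusted p = 4.18e-06) and rose with ibrutinib (log2 fold change 0.26 ± 0.087, adjusted p = 0.0293), and the log2 fold change was 0.13 ± 0.087 with idelalisib, which did not pass. ACAT2 in JVM2 was measured at 19.5, 18.8 and 20.2 CPM with DMSO, 28.96, 30.7 and 25.8 with fludarabine, 20.4, 20.3 and 20.5 with ibrutinib and 12.3, 12.7 and 15.7 with idelalisib. By library, the idelalisib libraries lay below every DMSO library and those with fludarabine and ibrutinib above. ACAT2 fell in JVM2 with idelalisib (log2 fold change −0.52 ± 0.097, adjusted p = 0.00125) and rose with fludarabine (log2 fold change 0.55 ± 0.097, adjusted p = 7.71e-04), and the log2 fold change was 0.064 ± 0.097 with ibrutinib, which did not pass. In EHEB, ACAT2 lay at 57.2, 47.7 and 47.2 CPM with DMSO, 50.4, 49.1 and 50.3 with fludarabine, 32.6, 35.4 and 36.6 with ibrutinib and 20.4, 20.1 and 18.97 with idelalisib. For ACAT2 in EHEB, the ibrutinib and idelalisib libraries lay below every DMSO library and those with fludarabine overlapped the DMSO range. ACAT2 fell in EHEB with ibrutinib and idelalisib (log2 fold change −0.54 ± 0.081 and −1.36 ± 0.082, adjusted p = 5.64e-07 to 8.93e-04), and the log2 fold change was −0.022 ± 0.080 with fludarabine, which did not pass. ACAT2 overlaps TCP1 and SOD2 on the other strand. MVD, the decarboxylase that makes isopentenyl diphosphate, was called lower in 7 of the 9 comparisons. Levels of MVD in MEC1 were 98.02, 99.4 and 104 CPM with DMSO, 72.1, 64.97 and 69.6 with fludarabine, 53.6, 49.5 and 54.5 with ibrutinib and 39.04, 40.8 and 41.7 with idelalisib. No drug library reached the DMSO range, and all were lower. MVD fell in MEC1 with fludarabine, ibrutinib and idelalisib (log2 fold change −0.54 ± 0.063, −0.93 ± 0.063 and −1.31 ± 0.063, adjusted p = 5.59e-08 to 3.75e-05). MVD in JVM2 was measured at 29.03, 33.2 and 31.8 CPM with DMSO, 29.7, 27.7 and 27.2 with fludarabine, 29.2, 29.8 and 32.9 with ibrutinib and 26.0, 24.9 and 24.7 with idelalisib. For MVD in JVM2, the idelalisib libraries lay below every DMSO library and those with fludarabine and ibrutinib overlapped the DMSO range. MVD fell in JVM2 with idelalisib (log2 fold change −0.32 ± 0.071, adjusted p = 0.00387), and the log2 fold change was −0.16 ± 0.070 with fludarabine and −0.035 ± 0.070 with ibrutinib, which did not pass. In EHEB, MVD lay at 41.8, 39.8 and 42.4 CPM with DMSO, 35.7, 36.2 and 36.3 with fludarabine, 32.2, 34.7 and 34.9 with ibrutinib and 23.99, 26.98 and 28.6 with idelalisib. By library, all drug libraries lay below every DMSO library. MVD fell in EHEB with fludarabine, ibrutinib and idelalisib (log2 fold change −0.20 ± 0.071, −0.28 ± 0.071 and −0.64 ± 0.071, adjusted p = 4.63e-05 to 0.0479). FDPS, the synthase of farnesyl diphosphate, acts after MVD and IDI1. Levels of FDPS in MEC1 were 206, 191.6 and 199.8 CPM with DMSO, 125, 131 and 127 with fludarabine, 174, 163 and 179 with ibrutinib and 151, 131 and 145 with idelalisib. For FDPS in MEC1, no drug library reached the DMSO range, and all were lower. FDPS fell in MEC1 with fludarabine, ibrutinib and idelalisib (log2 fold change −0.64 ± 0.064, −0.21 ± 0.064 and −0.48 ± 0.064, adjusted p = 1.36e-05 to 0.0165). FDPS in JVM2 was measured at 52.5, 49.8 and 49.9 CPM with DMSO, 47.5, 44.96 and 44.6 with fludarabine, 54.3, 58.2 and 65.7 with ibrutinib and 45.7, 49.1 and 43.5 with idelalisib. The fludarabine and idelalisib libraries lay below every DMSO library and those with ibrutinib above. FDPS rose in JVM2 with ibrutinib (log2 fold change 0.23 ± 0.074, adjusted p = 0.0394), and the log2 fold change was −0.15 ± 0.074 with fludarabine and −0.14 ± 0.074 with idelalisib, which did not pass. In EHEB, FDPS lay at 68.6, 65.3 and 60.4 CPM with DMSO, 44.5, 44.6 and 42.5 with fludarabine, 45.3, 47.01 and 53.1 with ibrutinib and 30.6, 31.98 and 35.5 with idelalisib. For FDPS in EHEB, all drug libraries lay below every DMSO library. FDPS fell in EHEB with fludarabine, ibrutinib and idelalisib (log2 fold change −0.56 ± 0.081, −0.42 ± 0.080 and −0.99 ± 0.081, adjusted p = 4.92e-06 to 0.00408). FDPS overlaps RUSC1-AS1 on the other strand, and its 8 pseudogenes held 2.46% of the counts of FDPS and pseudogenes together.

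The other members of the arm are the kinases MVK and PMVK and the isomerase IDI1. MVK fell in MEC1 with fludarabine and idelalisib (−0.47 ± 0.086 and −0.39 ± 0.086 on the log2 scale), and in JVM2 and EHEB with fludarabine (−0.25 ± 0.095 and −0.36 ± 0.096), and it rose in JVM2 with ibrutinib (0.39 ± 0.095). MVK overlaps MMAB on the other strand. PMVK fell with each drug in MEC1 (log2 fold change −0.73 ± 0.091, −0.44 ± 0.091 and −0.63 ± 0.091) and was called in neither other line. IDI1 fell in MEC1 with fludarabine (−0.92 ± 0.064), in JVM2 with ibrutinib and idelalisib (−0.51 ± 0.076 and −0.59 ± 0.076) and in EHEB with idelalisib (−1.04 ± 0.25). Promoter sites of HMGCS1 and MVD are shown as examples of genes of the arm that hold the letters CCAAT and were called lower in at least 6 of the 9 comparisons. FDPS was also called lower in 6 and holds 3 such sites, which are not shown. CCAAT is the sequence read by the factor NF-Y, a known partner of SREBPs, and ATTGG is the same site on the opposite strand. Each line is named by the first coordinate of its window and runs 5′ to 3′ on the gene's strand (minus for both), with the match in capitals. The HMGCS1 windows are chr5:43313552-43313577 and chr5:43313497-43313522, and the MVD windows are chr16:88663235-88663260, chr16:88663196-88663221 and chr16:88663161-88663186, on GRCh38.p14.
HMGCS1 at 43313552: tttccttttgATTGGtagaagccgga
HMGCS1 at 43313497: accggccgcgATTGGctgtgggagcc
MVD at 88663235: gatcccgtccATTGGctgagaggtaa
MVD at 88663196: ctcgccgctgATTGGtcggcgcgcga
MVD at 88663161: ctcgcacgggCCAATcctgtggtagc
CCAAT on either strand stood in 26 of the 44 promoters (59.1%) and in 34.6% of all promoters. GGGCGG, the letters of the GC box read by SP1, stood in 38 (86.4%) and in 45.0%, on either strand. Such a match is a description and not a bound site. The call of ACAT2 in MEC1 with ibrutinib was lost without library MEC1_37, MEC1_38, MEC1_184 or MEC1_186 (adjusted p = 0.0605 to 0.114). The call of HMGCS1 in JVM2 with fludarabine was lost without library JVM2_85, JVM2_86, JVM2_87, JVM2_94, JVM2_95 or JVM2_96 (adjusted p = 0.0544 to 0.161) and that in EHEB with fludarabine was lost without library EHEB_133, EHEB_134, EHEB_135, EHEB_143 or EHEB_144 (adjusted p = 0.0550 to 0.116). The call of MVK in JVM2 with fludarabine was lost without library JVM2_85, JVM2_86, JVM2_87, JVM2_95 or JVM2_96 (adjusted p = 0.0583 to 0.156). The call of MVD in EHEB with fludarabine was lost without library EHEB_133, EHEB_134, EHEB_135, EHEB_142, EHEB_143 or EHEB_144 (adjusted p = 0.0564 to 0.112) and that in EHEB with ibrutinib was lost without library EHEB_133, EHEB_135 or EHEB_280 (adjusted p = 0.0599 to 0.0697). The call of FDPS in MEC1 with ibrutinib was lost without library MEC1_37 or MEC1_185 (adjusted p = 0.0615 to 0.0622) and that in JVM2 with ibrutinib was lost without library JVM2_85, JVM2_86, JVM2_87, JVM2_233 or JVM2_234 (adjusted p = 0.0547 to 0.115).

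Of the 11 genes from squalene to cholesterol, the calls were in MEC1 0 higher and 8 lower with fludarabine (21.2% and 22.7% of all genes tested). They were 0 higher and 4 lower with ibrutinib (23.7% and 23.9%) and 2 higher and 7 lower with idelalisib (27.6% and 27.4%). In JVM2 they were 4 higher and 2 lower (23.9% and 23.3%), 1 higher and 1 lower (14.5% and 15%) and 1 higher and 3 lower (21.6% and 22.6%), with the drugs in the same order. In EHEB they were 3 higher and 4 lower (18.4% and 19.2%), 1 higher and 5 lower (8.5% and 11.2%) and 1 higher and 7 lower (15.1% and 18.2%). The median log2 fold change of the 11 genes ran from −0.56 to 0.0074 over the 9 comparisons, against −0.0014 to 0.081 over all genes. FDFT1, squalene synthase, commits farnesyl diphosphate to sterols. Levels of FDFT1 in MEC1 were 281.9, 289.8 and 337 CPM with DMSO, 209, 169 and 174 with fludarabine, 266, 259 and 302 with ibrutinib and 274, 226 and 248 with idelalisib. By library, the fludarabine and idelalisib libraries lay below every DMSO library and those with ibrutinib overlapped the DMSO range. FDFT1 fell in MEC1 with fludarabine and idelalisib (log2 fold change −0.72 ± 0.11 and −0.28 ± 0.11, adjusted p = 2.47e-04 to 0.0436), and the log2 fold change was −0.14 ± 0.11 with ibrutinib, which did not pass. FDFT1 in JVM2 was measured at 55.1, 60.7 and 55.3 CPM with DMSO, 54.04, 51.99 and 49.5 with fludarabine, 57.8, 51.01 and 50.1 with ibrutinib and 47.4, 48.2 and 35.3 with idelalisib. For FDFT1 in JVM2, the fludarabine and idelalisib libraries lay below every DMSO library and those with ibrutinib overlapped the DMSO range. FDFT1 fell in JVM2 with idelalisib (log2 fold change −0.39 ± 0.11, adjusted p = 0.0146), and the log2 fold change was −0.14 ± 0.11 with fludarabine and −0.11 ± 0.11 with ibrutinib, which did not pass. In EHEB, FDFT1 lay at 170.0, 152 and 149.9 CPM with DMSO, 122, 123 and 143.3 with fludarabine, 116, 105 and 124 with ibrutinib and 108, 98.9 and 96.97 with idelalisib. All drug libraries lay below every DMSO library. FDFT1 fell in EHEB with fludarabine, ibrutinib and idelalisib (log2 fold change −0.28 ± 0.085, −0.45 ± 0.085 and −0.64 ± 0.085, adjusted p = 1.82e-04 to 0.0236). SQLE, squalene epoxidase, catalyses the next step. Levels of SQLE in MEC1 were 346, 353 and 339.8 CPM with DMSO, 238.7, 237 and 231 with fludarabine, 280.9, 271 and 299 with ibrutinib and 285, 267 and 283 with idelalisib. For SQLE in MEC1, no drug library reached the DMSO range, and all were lower. SQLE fell in MEC1 with fludarabine, ibrutinib and idelalisib (log2 fold change −0.56 ± 0.052, −0.29 ± 0.052 and −0.32 ± 0.052, adjusted p = 8.24e-06 to 8.48e-04). SQLE in JVM2 was measured at 64.6, 61.7 and 65.3 CPM with DMSO, 52.7, 53.1 and 54.9 with fludarabine, 70.1, 73.3 and 71.6 with ibrutinib and 78.4, 75.03 and 78.3 with idelalisib. By library, the fludarabine libraries lay below every DMSO library and those with ibrutinib and idelalisib above. SQLE fell in JVM2 with fludarabine (log2 fold change −0.25 ± 0.045, adjusted p = 7.94e-04) and rose with ibrutinib and idelalisib (log2 fold change 0.17 ± 0.045 and 0.28 ± 0.045, adjusted p = 5.12e-04 to 0.0170). In EHEB, SQLE lay at 103, 99.1 and 94.3 CPM with DMSO, 84.8, 89.6 and 90.7 with fludarabine, 90.9, 86.4 and 94.9 with ibrutinib and 76.5, 77.8 and 79.3 with idelalisib. For SQLE in EHEB, the fludarabine and idelalisib libraries lay below every DMSO library and those with ibrutinib overlapped the DMSO range. SQLE fell in EHEB with fludarabine and idelalisib (log2 fold change −0.16 ± 0.054 and −0.34 ± 0.055, adjusted p = 6.15e-04 to 0.0393), and the log2 fold change was −0.12 ± 0.054 with ibrutinib, which did not pass. SQLE thus fell with the kinase inhibitors in MEC1 and rose with both in JVM2.

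LSS closes the ring to give lanosterol, the first sterol. Levels of LSS in MEC1 were 148, 165 and 171 CPM with DMSO, 115, 118 and 108 with fludarabine, 183, 168 and 174 with ibrutinib and 104, 111 and 108 with idelalisib. The fludarabine and idelalisib libraries lay below every DMSO library and those with ibrutinib overlapped the DMSO range. LSS fell in MEC1 with fludarabine and idelalisib (log2 fold change −0.50 ± 0.066 and −0.58 ± 0.066, adjusted p = 1.96e-05 to 1.05e-04), and the log2 fold change was 0.12 ± 0.066 with ibrutinib, which did not pass. LSS in JVM2 was measured at 90.9, 110.0 and 118 CPM with DMSO, 142.9970, 134.7 and 141.7 with fludarabine, 109, 107 and 114 with ibrutinib and 103, 126 and 113 with idelalisib. For LSS in JVM2, the fludarabine libraries lay above every DMSO library and those with ibrutinib and idelalisib overlapped the DMSO range. LSS rose in JVM2 with fludarabine (log2 fold change 0.40 ± 0.095, adjusted p = 0.00525), and the log2 fold change was 0.051 ± 0.095 with ibrutinib and 0.10 ± 0.095 with idelalisib, which did not pass. In EHEB, LSS lay at 59.1, 60.3 and 63.9 CPM with DMSO, 110.0, 105 and 112 with fludarabine, 73.02, 78.0 and 74.4 with ibrutinib and 93.8, 107 and 113 with idelalisib. By library, all drug libraries lay above every DMSO library. LSS rose in EHEB with fludarabine, ibrutinib and idelalisib (log2 fold change 0.84 ± 0.070, 0.30 ± 0.070 and 0.78 ± 0.070, adjusted p = 3.61e-06 to 0.0120). LSS was the one gene of the steps from squalene on that rose with all 3 drugs in a line, EHEB. CYP51A1, the lanosterol demethylase, was called lower in 7 of the 9 comparisons. Levels of CYP51A1 in MEC1 were 827, 804 and 814 CPM with DMSO, 397, 366 and 389 with fludarabine, 687, 634 and 746 with ibrutinib and 659, 633 and 583 with idelalisib. For CYP51A1 in MEC1, no drug library reached the DMSO range, and all were lower. CYP51A1 fell in MEC1 with fludarabine, ibrutinib and idelalisib (log2 fold change −1.09 ± 0.069, −0.24 ± 0.068 and −0.38 ± 0.068, adjusted p = 5.38e-07 to 0.0120). CYP51A1 in JVM2 was measured at 113, 104 and 105 CPM with DMSO, 91.4, 89.7 and 70.9 with fludarabine, 111, 93.1 and 119 with ibrutinib and 97.9, 98.3 and 102 with idelalisib. The fludarabine and idelalisib libraries lay below every DMSO library and those with ibrutinib overlapped the DMSO range. CYP51A1 fell in JVM2 with fludarabine (log2 fold change −0.35 ± 0.10, adjusted p = 0.0174), and the log2 fold change was 0.0074 ± 0.10 with ibrutinib and −0.11 ± 0.10 with idelalisib, which did not pass. In EHEB, CYP51A1 lay at 190.9, 170.2 and 160.4 CPM with DMSO, 126, 123 and 124 with fludarabine, 138, 134.8 and 156 with ibrutinib and 112, 103 and 102 with idelalisib. For CYP51A1 in EHEB, all drug libraries lay below every DMSO library. CYP51A1 fell in EHEB with fludarabine, ibrutinib and idelalisib (log2 fold change −0.48 ± 0.075, −0.28 ± 0.075 and −0.72 ± 0.075, adjusted p = 2.98e-05 to 0.0213). CYP51A1 overlaps AKAP9 on the other strand, and its 3 pseudogenes held 1.81% of the combined counts.

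MSMO1, NSDHL and HSD17B7 remove methyl groups from the sterol ring in 1 complex. Levels of MSMO1 in MEC1 were 361, 348 and 337 CPM with DMSO, 204, 202 and 204 with fludarabine, 347, 384 and 406 with ibrutinib and 484, 419 and 503 with idelalisib. By library, the fludarabine libraries lay below every DMSO library, those with idelalisib above and those with ibrutinib overlapped the DMSO range. MSMO1 fell in MEC1 with fludarabine (log2 fold change −0.78 ± 0.076, adjusted p = 1.11e-05) and rose with idelalisib (log2 fold change 0.43 ± 0.075, adjusted p = 5.46e-04), and the log2 fold change was 0.12 ± 0.075 with ibrutinib, which did not pass. MSMO1 in JVM2 was measured at 79.7, 79.7 and 83.4 CPM with DMSO, 78.8, 81.9 and 72.8 with fludarabine, 72.8, 68.8 and 68.8 with ibrutinib and 64.2, 67.6 and 70.4 with idelalisib. For MSMO1 in JVM2, the ibrutinib and idelalisib libraries lay below every DMSO library and those with fludarabine overlapped the DMSO range. MSMO1 fell in JVM2 with ibrutinib and idelalisib (log2 fold change −0.21 ± 0.057 and −0.26 ± 0.057, adjusted p = 0.00322 to 0.0190), and the log2 fold change was −0.057 ± 0.057 with fludarabine, which did not pass. In EHEB, MSMO1 lay at 176, 170.3 and 154 CPM with DMSO, 116, 137 and 132 with fludarabine, 118, 113 and 123 with ibrutinib and 101, 98.4 and 91.8 with idelalisib. All drug libraries lay below every DMSO library. MSMO1 fell in EHEB with fludarabine, ibrutinib and idelalisib (log2 fold change −0.38 ± 0.074, −0.50 ± 0.074 and −0.78 ± 0.075, adjusted p = 1.46e-05 to 0.00191). Levels of HSD17B7 in MEC1 were 20.6, 27.4 and 25.4 CPM with DMSO, 14.96, 17.1 and 12.3 with fludarabine, 29.2, 34.1 and 29.2 with ibrutinib and 36.8, 29.05 and 30.99 with idelalisib. For HSD17B7 in MEC1, the fludarabine libraries lay below every DMSO library and those with ibrutinib and idelalisib above. HSD17B7 fell in MEC1 with fludarabine (log2 fold change −0.72 ± 0.15, adjusted p = 0.00201) and rose with idelalisib (log2 fold change 0.40 ± 0.14, adjusted p = 0.0346), and the log2 fold change was 0.33 ± 0.14 with ibrutinib, which did not pass. HSD17B7 in JVM2 was measured at 4.64, 5.19 and 4.01 CPM with DMSO, 10.4, 11.6 and 14.6 with fludarabine, 4.43, 5.32 and 6.52 with ibrutinib and 5.84, 5.05 and 6.42 with idelalisib. By library, the fludarabine libraries lay above every DMSO library and those with ibrutinib and idelalisib overlapped the DMSO range. HSD17B7 rose in JVM2 with fludarabine (log2 fold change 1.40 ± 0.18, adjusted p = 6.64e-05), and the log2 fold change was 0.23 ± 0.18 with ibrutinib and 0.32 ± 0.18 with idelalisib, which did not pass. In EHEB, HSD17B7 lay at 11.3, 11.6 and 12.01 CPM with DMSO, 20.8, 17.5 and 19.4 with fludarabine, 13.8, 12.1 and 13.3 with ibrutinib and 8.42, 9.17 and 8.67 with idelalisib. For HSD17B7 in EHEB, the idelalisib libraries lay below every DMSO library and those with fludarabine and ibrutinib above. HSD17B7 fell in EHEB with idelalisib (log2 fold change −0.41 ± 0.089, adjusted p = 0.00435) and rose with fludarabine (log2 fold change 0.72 ± 0.088, adjusted p = 6.43e-05), and the log2 fold change was 0.16 ± 0.088 with ibrutinib, which did not pass. The 2 pseudogenes of HSD17B7 held 23.0% of the counts of the 3 together, so how reads were shared among them bears on its values. NSDHL fell in MEC1 with fludarabine and idelalisib (−0.22 ± 0.075 and −0.39 ± 0.075 on the log2 scale) and was called in neither other line, and without the TMM step its value with fludarabine was 0.031.

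TM7SF2, a sterol reductase that shares its step with the lamin B receptor, moved by line. Levels of TM7SF2 in MEC1 were 25.7, 19.4 and 23.4 CPM with DMSO, 32.7, 24.9 and 33.1 with fludarabine, 27.4, 25.7 and 35.8 with ibrutinib and 24.4, 27.7 and 29.4 with idelalisib. The DMSO range was overlapped by all 3 drug groups. The log2 fold change of TM7SF2 in MEC1 was 0.41 ± 0.16 with fludarabine, 0.38 ± 0.16 with ibrutinib and 0.25 ± 0.16 with idelalisib, and none passed the test. TM7SF2 in JVM2 was measured at 17.4, 12.2 and 17.4 CPM with DMSO, 37.6, 38.3 and 39.9 with fludarabine, 18.9, 21.4 and 14.1 with ibrutinib and 11.2, 14.01 and 10.1 with idelalisib. For TM7SF2 in JVM2, the fludarabine libraries lay above every DMSO library and those with ibrutinib and idelalisib overlapped the DMSO range. TM7SF2 rose in JVM2 with fludarabine (log2 fold change 1.3 ± 0.18, adjusted p = 1.26e-04), and the log2 fold change was 0.21 ± 0.18 with ibrutinib and −0.41 ± 0.18 with idelalisib, which did not pass. In EHEB, TM7SF2 lay at 25.8, 24.2 and 24.03 CPM with DMSO, 32.2, 41.7 and 32.3 with fludarabine, 21.1, 17.3 and 13.5 with ibrutinib and 11.7, 10.3 and 13.6 with idelalisib. By library, the ibrutinib and idelalisib libraries lay below every DMSO library and those with fludarabine above. TM7SF2 fell in EHEB with ibrutinib and idelalisib (log2 fold change −0.51 ± 0.16 and −1.06 ± 0.16, adjusted p = 5.04e-04 to 0.0476) and rose with fludarabine (log2 fold change 0.52 ± 0.16, adjusted p = 0.0255). TM7SF2 overlaps VPS51 on the same strand. EBP, the sterol isomerase, fell with each drug in MEC1 (log2 fold change −0.77 ± 0.17, −1.16 ± 0.17 and −0.70 ± 0.17) and was called in neither other line. SC5D, the desaturase after it, was called once, higher in JVM2 with fludarabine (0.51 ± 0.14). DHCR7, which makes cholesterol from its direct precursor, fell in MEC1 with ibrutinib and idelalisib (log2 fold change −0.74 ± 0.15 and −1.12 ± 0.16), in JVM2 with idelalisib (−0.66 ± 0.18) and in EHEB with ibrutinib and idelalisib (−0.56 ± 0.088 and −0.95 ± 0.089). With fludarabine it was called in no line. STARD4, which carries sterols between membranes and is not a synthetic enzyme, rose with fludarabine in JVM2 and EHEB (0.56 ± 0.063 and 0.41 ± 0.083), fell with ibrutinib in both (−0.39 ± 0.063 and −0.31 ± 0.083), fell with idelalisib in both (−0.74 ± 0.064 and −0.49 ± 0.083) and rose with idelalisib in MEC1 (0.29 ± 0.087). It overlaps STARD4-AS1 on the other strand. The call of FDFT1 in MEC1 with idelalisib was lost without library MEC1_38, MEC1_39, MEC1_191 or MEC1_192 (adjusted p = 0.0554 to 0.158), that in JVM2 with idelalisib was lost without library JVM2_86 (adjusted p = 0.0518) and that in EHEB with fludarabine was lost without library EHEB_133, EHEB_142 or EHEB_143 (adjusted p = 0.0845 to 0.0926). The call of SQLE in JVM2 with ibrutinib was lost without library JVM2_86 (adjusted p = 0.0735) and that in EHEB with fludarabine was lost without library EHEB_133, EHEB_134, EHEB_142, EHEB_143 or EHEB_144 (adjusted p = 0.0525 to 0.131). The call of CYP51A1 in JVM2 with fludarabine was lost without library JVM2_85 or JVM2_96 (adjusted p = 0.0510 to 0.0587) and that in EHEB with ibrutinib was lost without library EHEB_133, EHEB_134, EHEB_280 or EHEB_281 (adjusted p = 0.0540 to 0.0942). The call of TM7SF2 in EHEB with fludarabine was lost without library EHEB_133, EHEB_134, EHEB_135 or EHEB_143 (adjusted p = 0.0520 to 0.117) and that in EHEB with ibrutinib was lost without library EHEB_133, EHEB_134, EHEB_135, EHEB_281 or EHEB_282 (adjusted p = 0.0894 to 0.138). The call of MSMO1 in JVM2 with ibrutinib was lost without library JVM2_87, JVM2_233 or JVM2_234 (adjusted p = 0.0719 to 0.0978). The call of NSDHL in MEC1 with fludarabine was lost without library MEC1_37, MEC1_38, MEC1_46, MEC1_47 or MEC1_48 (adjusted p = 0.0524 to 0.137). The call of HSD17B7 in MEC1 with idelalisib was lost without library MEC1_37, MEC1_39, MEC1_190 or MEC1_192 (adjusted p = 0.0536 to 0.139). The call of DHCR7 in JVM2 with idelalisib was lost without library JVM2_240 (adjusted p = 0.0553). The call of STARD4 in MEC1 with idelalisib was lost without library MEC1_37, MEC1_190 or MEC1_192 (adjusted p = 0.0547 to 0.0682) and that in EHEB with ibrutinib was lost without library EHEB_133, EHEB_134, EHEB_135 or EHEB_282 (adjusted p = 0.0517 to 0.0760).

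Among the 11 genes of fatty acid synthesis, elongation, desaturation and use, SCD and ELOVL5 were the only members called lower in all 9 comparisons. Of the group, 10 were tested in MEC1 and 11 in each other line. The calls were in MEC1 1 higher and 8 lower with fludarabine (21.2% and 22.7% of all genes tested). They were 1 higher and 7 lower with ibrutinib (23.7% and 23.9%) and 1 higher and 9 lower with idelalisib (27.6% and 27.4%). In JVM2 they were 0 higher and 6 lower (23.9% and 23.3%), 2 higher and 3 lower (14.5% and 15%) and 1 higher and 5 lower (21.6% and 22.6%), with the drugs in the same order. In EHEB they were 2 higher and 8 lower (18.4% and 19.2%), 0 higher and 5 lower (8.5% and 11.2%) and 2 higher and 6 lower (15.1% and 18.2%). The group's median log2 fold change lay between −0.93 and −0.040 over the 9 comparisons. Levels of SCD in MEC1 were 2000, 2070 and 1807 CPM with DMSO, 1145, 1147 and 1145 with fludarabine, 1221, 1077 and 1313 with ibrutinib and 1015, 1043 and 1118 with idelalisib. For SCD in MEC1, no drug library reached the DMSO range, and all were lower. SCD fell in MEC1 with fludarabine, ibrutinib and idelalisib (log2 fold change −0.77 ± 0.077, −0.70 ± 0.077 and −0.89 ± 0.077, adjusted p = 2.42e-06 to 2.15e-05). SCD in JVM2 was measured at 302, 315 and 307 CPM with DMSO, 138, 138 and 118 with fludarabine, 225, 213 and 207 with ibrutinib and 137, 128 and 119 with idelalisib. Every drug library was lower than the lowest DMSO library. SCD fell in JVM2 with fludarabine, ibrutinib and idelalisib (log2 fold change −1.23 ± 0.071, −0.52 ± 0.070 and −1.26 ± 0.071, adjusted p = 1.48e-07 to 3.28e-04). In EHEB, SCD lay at 218, 212 and 204 CPM with DMSO, 57.0, 56.6 and 60.6 with fludarabine, 82.7, 80.2 and 88.9 with ibrutinib and 52.1, 53.9 and 48.96 with idelalisib. For SCD in EHEB, all drug libraries lay below every DMSO library. SCD fell in EHEB with fludarabine, ibrutinib and idelalisib (log2 fold change −1.86 ± 0.060, −1.33 ± 0.059 and −2.03 ± 0.060, adjusted p = 7.04e-09 to 3.76e-07). SCD had the largest change of all 35 genes in EHEB with fludarabine and with idelalisib. Its pseudogene SCDP1 held 0.069% of the combined counts.

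ELOVL5 lengthens polyunsaturated fatty acids. Levels of ELOVL5 in MEC1 were 265, 262 and 247 CPM with DMSO, 179.7, 171 and 169 with fludarabine, 182, 161 and 177 with ibrutinib and 197, 201 and 201 with idelalisib. By library, no drug library reached the DMSO range, and all were lower. ELOVL5 fell in MEC1 with fludarabine, ibrutinib and idelalisib (log2 fold change −0.57 ± 0.058, −0.57 ± 0.058 and −0.37 ± 0.058, adjusted p = 1.20e-05 to 2.16e-04). ELOVL5 in JVM2 was measured at 232.1, 215 and 237 CPM with DMSO, 149, 148 and 132.8 with fludarabine, 180.5, 185.2 and 189 with ibrutinib and 165, 173 and 158 with idelalisib. For ELOVL5 in JVM2, every drug library was lower than the lowest DMSO library. ELOVL5 fell in JVM2 with fludarabine, ibrutinib and idelalisib (log2 fold change −0.67 ± 0.058, −0.30 ± 0.058 and −0.47 ± 0.058, adjusted p = 3.72e-06 to 0.00269). In EHEB, ELOVL5 lay at 216, 217 and 190.7 CPM with DMSO, 120.3, 127 and 121 with fludarabine, 176, 162 and 167 with ibrutinib and 180.4, 179 and 164 with idelalisib. All drug libraries lay below every DMSO library. ELOVL5 fell in EHEB with fludarabine, ibrutinib and idelalisib (log2 fold change −0.76 ± 0.063, −0.30 ± 0.063 and −0.25 ± 0.063, adjusted p = 3.42e-06 to 0.00952). Both genes hold CCAAT letters in their promoters, shown because they are the members lower in every comparison. The SCD windows are chr10:100346994-100347019 and chr10:100347037-100347062 on the plus strand and the ELOVL5 windows chr6:53349057-53349082 and chr6:53349003-53349028 on the minus strand of GRCh38.p14, with the match in capitals. The INSIG1 window, chr7:155297698-155297723 on the plus strand, is set beside them as that of a member with calls in both directions.
SCD at 100346994: ttgcgccgagCCAATggcaacggcag
SCD at 100347037: ttcccttcggCCAATgacgagccgga
ELOVL5 at 53349057: ttgtcccgcgATTGGctcccgggccg
ELOVL5 at 53349003: tcgggtcccgATTGGctggccgcgcc
INSIG1 at 155297698: ccggcctcccATTGGttgcggccgcc
The same letters stood in the promoters of these picked members, and whether such letters go with direction was not tested.

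FASN, fatty acid synthase, makes palmitate and was called lower in 8 of the 9 comparisons. Levels of FASN in MEC1 were 779, 750.0 and 757 CPM with DMSO, 379, 412 and 422 with fludarabine, 322, 286.7 and 339 with ibrutinib and 193, 219.9 and 237.9 with idelalisib. For FASN in MEC1, no drug library reached the DMSO range, and all were lower. FASN fell in MEC1 with fludarabine, ibrutinib and idelalisib (log2 fold change −0.91 ± 0.085, −1.27 ± 0.085 and −1.81 ± 0.087, adjusted p = 5.17e-08 to 7.65e-06). FASN in JVM2 was measured at 238.5, 225 and 224 CPM with DMSO, 194, 197 and 209.6 with fludarabine, 209, 219.8 and 239.7 with ibrutinib and 154, 175 and 177 with idelalisib. By library, the fludarabine and idelalisib libraries lay below every DMSO library and those with ibrutinib overlapped the DMSO range. FASN fell in JVM2 with fludarabine and idelalisib (log2 fold change −0.20 ± 0.067 and −0.44 ± 0.068, adjusted p = 3.26e-04 to 0.0336), and the log2 fold change was −0.040 ± 0.067 with ibrutinib, which did not pass. In EHEB, FASN lay at 266, 229.8 and 220.0 CPM with DMSO, 172, 153 and 152 with fludarabine, 167, 156 and 196 with ibrutinib and 134.9, 139.8 and 141 with idelalisib. For FASN in EHEB, all drug libraries lay below every DMSO library. FASN fell in EHEB with fludarabine, ibrutinib and idelalisib (log2 fold change −0.59 ± 0.094, −0.46 ± 0.094 and −0.78 ± 0.094, adjusted p = 8.01e-05 to 0.00550). The call of FASN in JVM2 with fludarabine also depended on scaling, since the log2 fold change there was 0.0040 without the TMM step. ACLY, which cleaves citrate to supply cytosolic acetyl-CoA, was called lower in 6 of the 9. Levels of ACLY in MEC1 were 448, 465 and 428 CPM with DMSO, 375, 362 and 374 with fludarabine, 344, 295 and 369.9 with ibrutinib and 219, 207 and 212 with idelalisib. No drug library reached the DMSO range, and all were lower. ACLY fell in MEC1 with fludarabine, ibrutinib and idelalisib (log2 fold change −0.27 ± 0.075, −0.41 ± 0.075 and −1.07 ± 0.076, adjusted p = 5.37e-07 to 0.0122). ACLY in JVM2 was measured at 223, 219.7 and 241 CPM with DMSO, 241, 243 and 220.1 with fludarabine, 243, 251 and 256 with ibrutinib and 213, 229.9 and 222 with idelalisib. For ACLY in JVM2, the ibrutinib libraries lay above every DMSO library and those with fludarabine and idelalisib overlapped the DMSO range. The log2 fold change of ACLY in JVM2 was 0.045 ± 0.054 with fludarabine, 0.14 ± 0.054 with ibrutinib and −0.039 ± 0.054 with idelalisib, and none passed the test. In EHEB, ACLY lay at 303, 298 and 300.1 CPM with DMSO, 276, 261 and 265 with fludarabine, 249, 228 and 261 with ibrutinib and 213, 225 and 223 with idelalisib. By library, all drug libraries lay below every DMSO library. ACLY fell in EHEB with fludarabine, ibrutinib and idelalisib (log2 fold change −0.17 ± 0.053, −0.29 ± 0.053 and −0.45 ± 0.053, adjusted p = 6.89e-05 to 0.0264).

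LPIN1, a phosphatidate phosphatase that supplies diacylglycerol to lipid synthesis and is known as an SREBP target, was called in opposite directions in different lines. Levels of LPIN1 in MEC1 were 78.4, 81.6 and 74.8 CPM with DMSO, 111, 116 and 106 with fludarabine, 21.7, 18.4 and 19.3 with ibrutinib and 19.7, 23.6 and 23.99 with idelalisib. For LPIN1 in MEC1, the ibrutinib and idelalisib libraries lay below every DMSO library and those with fludarabine above. LPIN1 fell in MEC1 with ibrutinib and idelalisib (log2 fold change −1.98 ± 0.092 and −1.80 ± 0.091, adjusted p = 5.70e-08 to 6.61e-08) and rose with fludarabine (log2 fold change 0.50 ± 0.088, adjusted p = 7.54e-04). LPIN1 in JVM2 was measured at 113, 111 and 108 CPM with DMSO, 96.6, 101 and 94.8 with fludarabine, 82.6, 93.7 and 98.6 with ibrutinib and 124, 121 and 124 with idelalisib. The fludarabine and ibrutinib libraries lay below every DMSO library and those with idelalisib above. LPIN1 fell in JVM2 with fludarabine and ibrutinib (log2 fold change −0.18 ± 0.061 and −0.27 ± 0.061, adjusted p = 0.00679 to 0.0310), and the log2 fold change was 0.15 ± 0.061 with idelalisib, which did not pass. In EHEB, LPIN1 lay at 55.9, 57.4 and 57.6 CPM with DMSO, 25.3, 29.8 and 33.6 with fludarabine, 56.6, 58.8 and 55.96 with ibrutinib and 73.7, 72.8 and 76.2 with idelalisib. For LPIN1 in EHEB, the fludarabine libraries lay below every DMSO library, those with idelalisib above and those with ibrutinib overlapped the DMSO range. LPIN1 fell in EHEB with fludarabine (log2 fold change −0.94 ± 0.086, adjusted p = 7.15e-06) and rose with idelalisib (log2 fold change 0.38 ± 0.085, adjusted p = 0.00511), and the log2 fold change was 0.0044 ± 0.085 with ibrutinib, which did not pass. Without the TMM step the value in JVM2 with fludarabine was 0.018. LPIN1 thus had the largest change of the 35 genes with ibrutinib in MEC1. ACSS2, which makes acetyl-CoA from acetate, fell with each drug in MEC1 (log2 fold change −0.93 ± 0.068, −1.15 ± 0.068 and −1.61 ± 0.069) and with fludarabine in EHEB (−0.83 ± 0.13), and it overlaps GGT7 on the other strand. ACACA, the carboxylase that makes malonyl-CoA, fell with fludarabine in MEC1, JVM2 and EHEB (−0.40 ± 0.049, −0.35 ± 0.050 and −0.25 ± 0.052) and with idelalisib in MEC1 (−0.42 ± 0.049), and rose with ibrutinib in JVM2 (0.15 ± 0.050). FADS1 and FADS2, desaturases of polyunsaturated fatty acids, overlap each other on opposite strands, and FADS2 also overlaps FEN1 on the same strand. FADS1 fell in MEC1 with fludarabine and idelalisib (−1.03 ± 0.073 and −0.25 ± 0.073), in JVM2 with idelalisib (−0.57 ± 0.058) and in EHEB with ibrutinib and idelalisib (−0.25 ± 0.059 and −0.52 ± 0.059), and rose in EHEB with fludarabine (0.24 ± 0.059). FADS2 fell with each drug in MEC1 (−0.56 ± 0.13, −0.38 ± 0.13 and −0.97 ± 0.13) and with idelalisib in EHEB (−0.76 ± 0.20). ELOVL6, which lengthens palmitate to stearate, rose with ibrutinib and idelalisib in MEC1 (0.79 ± 0.074 and 0.90 ± 0.075) and in JVM2 (0.23 ± 0.065 and 0.51 ± 0.065) and with idelalisib in EHEB (0.35 ± 0.12), and fell only with fludarabine in EHEB (−0.44 ± 0.12). ME1, which supplies NADPH, fell in JVM2 with fludarabine and idelalisib (−0.55 ± 0.078 and −0.31 ± 0.078) and rose in EHEB with fludarabine (0.39 ± 0.13). The call of ACLY in EHEB with fludarabine was lost without library EHEB_133, EHEB_134, EHEB_135, EHEB_143 or EHEB_144 (adjusted p = 0.0512 to 0.0837). The call of ACACA in JVM2 with ibrutinib was lost without library JVM2_85, JVM2_86, JVM2_87, JVM2_232, JVM2_233 or JVM2_234 (adjusted p = 0.0596 to 0.139). The call of FASN in JVM2 with fludarabine was lost without library JVM2_85, JVM2_86, JVM2_87, JVM2_94 or JVM2_95 (adjusted p = 0.0550 to 0.111). The call of FADS1 in MEC1 with idelalisib was lost without library MEC1_37 (adjusted p = 0.0529) and that in EHEB with ibrutinib was lost without library EHEB_133, EHEB_280 or EHEB_281 (adjusted p = 0.0548 to 0.0602). The call of FADS2 in MEC1 with ibrutinib was lost without library MEC1_37, MEC1_38 or MEC1_185 (adjusted p = 0.0793 to 0.133) and that in EHEB with idelalisib was lost without library EHEB_134 or EHEB_287 (adjusted p = 0.0505 to 0.0520). The call of ELOVL5 in EHEB with idelalisib was lost without library EHEB_133, EHEB_134 or EHEB_288 (adjusted p = 0.0520 to 0.0580). The call of ELOVL6 in JVM2 with ibrutinib was lost without library JVM2_85 or JVM2_232 (adjusted p = 0.0643 to 0.0825) and that in EHEB with idelalisib was lost without library EHEB_133, EHEB_134, EHEB_135, EHEB_286, EHEB_287 or EHEB_288 (adjusted p = 0.0528 to 0.126). The call of ME1 in EHEB with fludarabine was lost without library EHEB_134, EHEB_135, EHEB_143 or EHEB_144 (adjusted p = 0.0758 to 0.166). The call of LPIN1 in JVM2 with fludarabine was lost without library JVM2_85, JVM2_86, JVM2_94 or JVM2_96 (adjusted p = 0.0780 to 0.0935).

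The effect of each drug was then compared between lines in fits of the DMSO and drug libraries of all 3 lines. The fludarabine effect differed between EHEB and JVM2 for 16 of the genes (22.2% of all genes tested), between EHEB and MEC1 for 18 of the genes (29.4% of all genes tested) and between JVM2 and MEC1 for 21 of the genes (25.2% of all genes tested). For ibrutinib the counts were 10 of the genes (12% of all genes tested), 17 of the genes (26.4% of all genes tested) and 19 of the genes (25.9% of all genes tested) in the same order. For idelalisib they were 14 of the genes (21.3% of all genes tested), 21 of the genes (38% of all genes tested) and 24 of the genes (35% of all genes tested). ME1, with no count in MEC1, was called in no difference against MEC1. The median of the genes' differences between JVM2 and MEC1 was 0.46 for fludarabine, 0.29 for ibrutinib and 0.35 for idelalisib. Between EHEB and MEC1 it was 0.17, 0.063 and 0.075, and between EHEB and JVM2 −0.17, −0.17 and −0.31, with the drugs in the same order. Over all genes these medians ran from −0.079 to 0.029. For some members the 2 lines were called in opposite directions and the difference passed. Part of these differences are named here, and all are listed under the results flagged for a closer look. With fludarabine, HSD17B7 was lower than DMSO in MEC1 and higher in JVM2 and EHEB, and its difference from MEC1 was 2.09 ± 0.22, adjusted p = 3.46e-06 for JVM2, and 1.37 ± 0.21, adjusted p = 1.62e-04 for EHEB. LSS had the same pattern, at 0.87 ± 0.12, adjusted p = 4.23e-05 for JVM2 minus MEC1, and 1.27 ± 0.12, adjusted p = 8.19e-07 for EHEB minus MEC1. ACAT2 differed between JVM2 and MEC1 by 1.55 ± 0.12, adjusted p = 9.78e-08, and HMGCS1 by 1.33 ± 0.074, adjusted p = 3.07e-09. LPIN1 had the opposite order, higher than DMSO in MEC1 and lower in EHEB, and EHEB differed from MEC1 by −1.52 ± 0.11, adjusted p = 9.66e-08. With ibrutinib, FDPS rose in JVM2 and fell in EHEB, and EHEB differed from JVM2 by −0.66 ± 0.11, adjusted p = 0.00129. With idelalisib, LPIN1 fell in MEC1 and rose in EHEB, and the difference was 2.23 ± 0.094, adjusted p = 2.09e-10. MSMO1 rose in MEC1 and fell in EHEB with idelalisib, with a difference of −1.16 ± 0.098, adjusted p = 1.71e-07. Each single difference named in this paragraph stayed past the threshold when any 1 of the 12 libraries of its 2 lines was left out. That statement does not extend to the differences listed only further below.

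**Figure D3:**
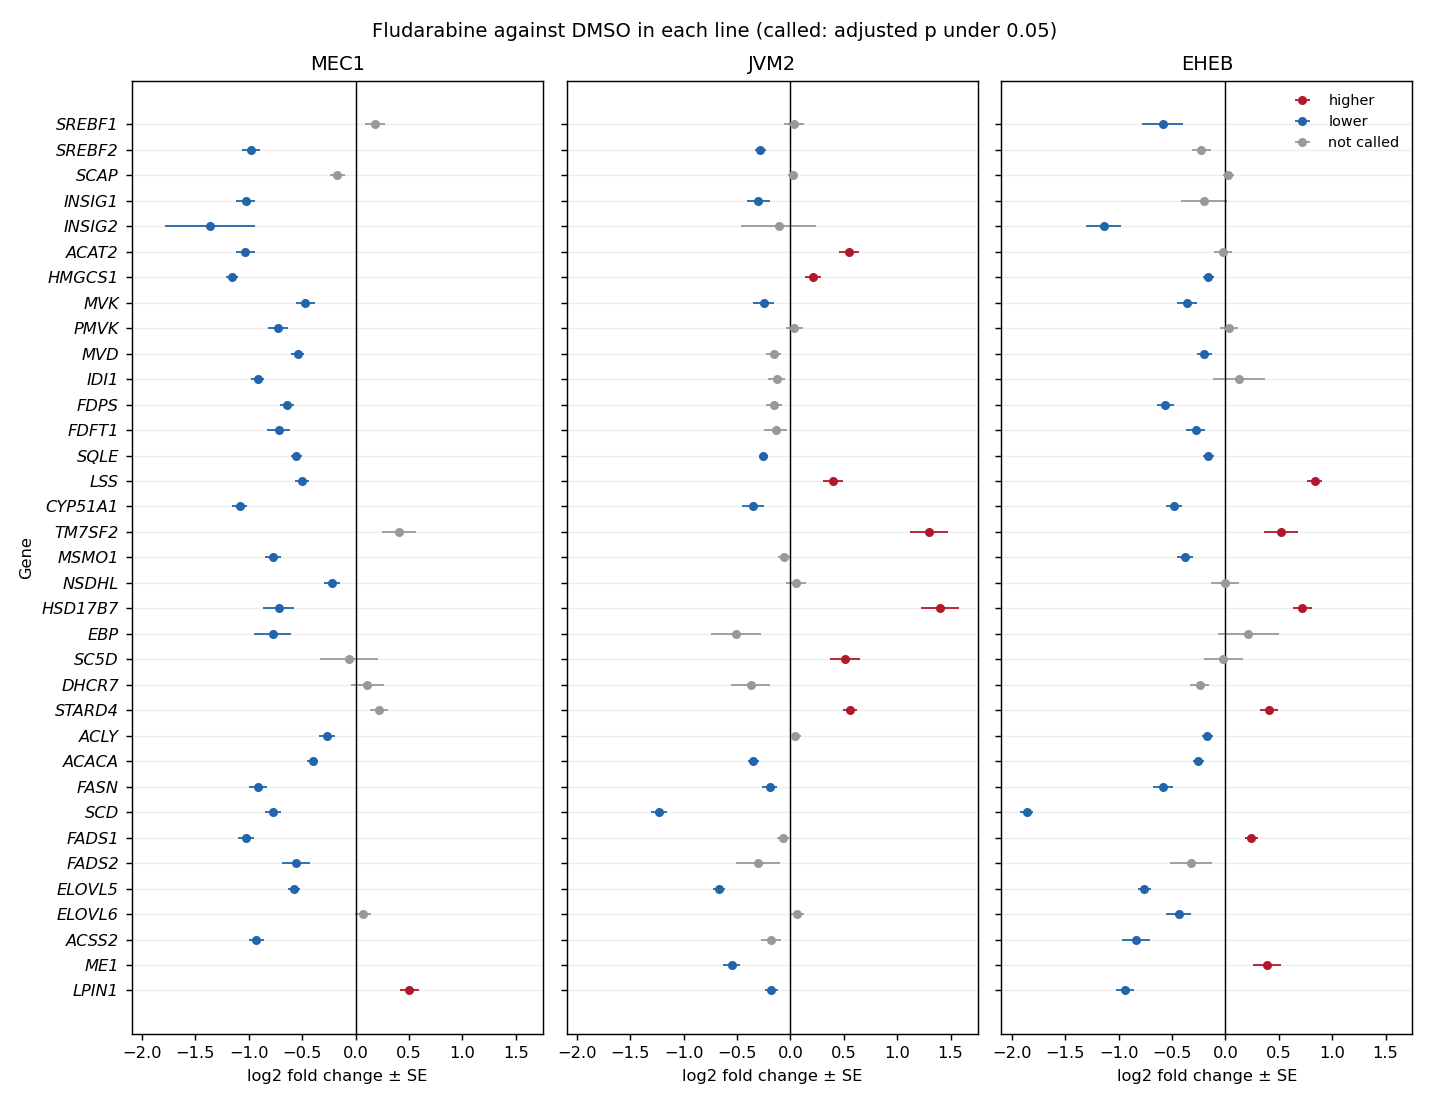
Log2 fold change of each gene with fludarabine against DMSO in the 3 lines, with SE as bars and colours for genes called higher, called lower or not called. The MEC1 panel holds 26 genes called lower and 1 higher, the JVM2 panel 11 and 7, and the EHEB panel 18 and 6.

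The 2 kinase inhibitors were compared with each other within the run of library numbers they share, at doses that differed (10 µM idelalisib, 5 µM ibrutinib), so the values are those of these doses only. With idelalisib relative to ibrutinib in MEC1, 2 of the genes were higher (6.01% of all genes tested) and 11 lower (9.37%), with a median log2 difference of −0.12 against −0.0025 over all genes. In JVM2, 2 of the genes were higher (8.21% of all genes tested) and 12 lower (10.5%), with a median log2 difference of −0.17 against 0.0097 over all genes. In EHEB, 3 of the genes were higher (6.77% of all genes tested) and 15 lower (9.09%), with a median log2 difference of −0.22 against −0.00034 over all genes. The libraries behind these values are those given above. FASN was lower with idelalisib in all 3 lines (log2 difference −0.54 ± 0.084 in MEC1, −0.40 ± 0.068 in JVM2 and −0.32 ± 0.094 in EHEB). MVD and FDPS were also lower in all 3 lines, MVD by −0.37 ± 0.063 in MEC1, −0.28 ± 0.071 in JVM2 and −0.36 ± 0.071 in EHEB. The FDPS differences were −0.27 ± 0.064 in MEC1, −0.37 ± 0.074 in JVM2 and −0.57 ± 0.081 in EHEB. SCD was lower in JVM2 and EHEB (−0.75 ± 0.071 in JVM2 and −0.70 ± 0.059 in EHEB) and not called in MEC1 (−0.19 ± 0.076). ACAT2 was lower in JVM2 and EHEB (−0.59 ± 0.097 in JVM2 and −0.82 ± 0.082 in EHEB). SREBF1 was lower in JVM2 and higher in EHEB (−0.55 ± 0.096 in JVM2 and 0.94 ± 0.20 in EHEB), and LSS was lower in MEC1 and higher in EHEB (−0.70 ± 0.066 in MEC1 and 0.48 ± 0.070 in EHEB). LPIN1 was higher in JVM2 and EHEB (0.42 ± 0.061 in JVM2 and 0.38 ± 0.085 in EHEB). TM7SF2 was lower in JVM2 (−0.62 ± 0.18), and it was called lower in EHEB (−0.55 ± 0.16) although its libraries with the 2 inhibitors overlapped. The count in EHEB fell to 11 called when the 2 groups were fitted alone, when no low counts were filtered out and when ibrutinib library EHEB_280 was left out. The 15 lower in EHEB became 8 in the first 2 of these settings and 8 or 9 without library EHEB_280, EHEB_282, EHEB_287 or EHEB_288. Without the TMM step 21 of the genes were lower and 0 higher in MEC1. That scaling gave 3852 lower and 493 higher of all 17516 genes tested there, with a median log2 difference of −0.17. The 2 higher in MEC1 became 0 or 1 without any 1 of MEC1_184, MEC1_185, MEC1_186, MEC1_190 or MEC1_192, and the 2 higher in JVM2 became 1 without JVM2_233. The call of FASN between the inhibitors in EHEB was lost without library EHEB_280, EHEB_282, EHEB_286, EHEB_287 or EHEB_288 (adjusted p = 0.0683 to 0.145). The call of MVD between the inhibitors in JVM2 was lost without library JVM2_234 or JVM2_240 (adjusted p = 0.0526 to 0.0550). The call of FDPS between the inhibitors in MEC1 was lost without library MEC1_186 (adjusted p = 0.0669). The call of TM7SF2 between the inhibitors in JVM2 was lost without library JVM2_232, JVM2_233, JVM2_238 or JVM2_240 (adjusted p = 0.0920 to 0.114) and that between the inhibitors in EHEB was lost without library EHEB_280, EHEB_281, EHEB_286 or EHEB_287 (adjusted p = 0.0937 to 0.165).

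**Figure D4:**
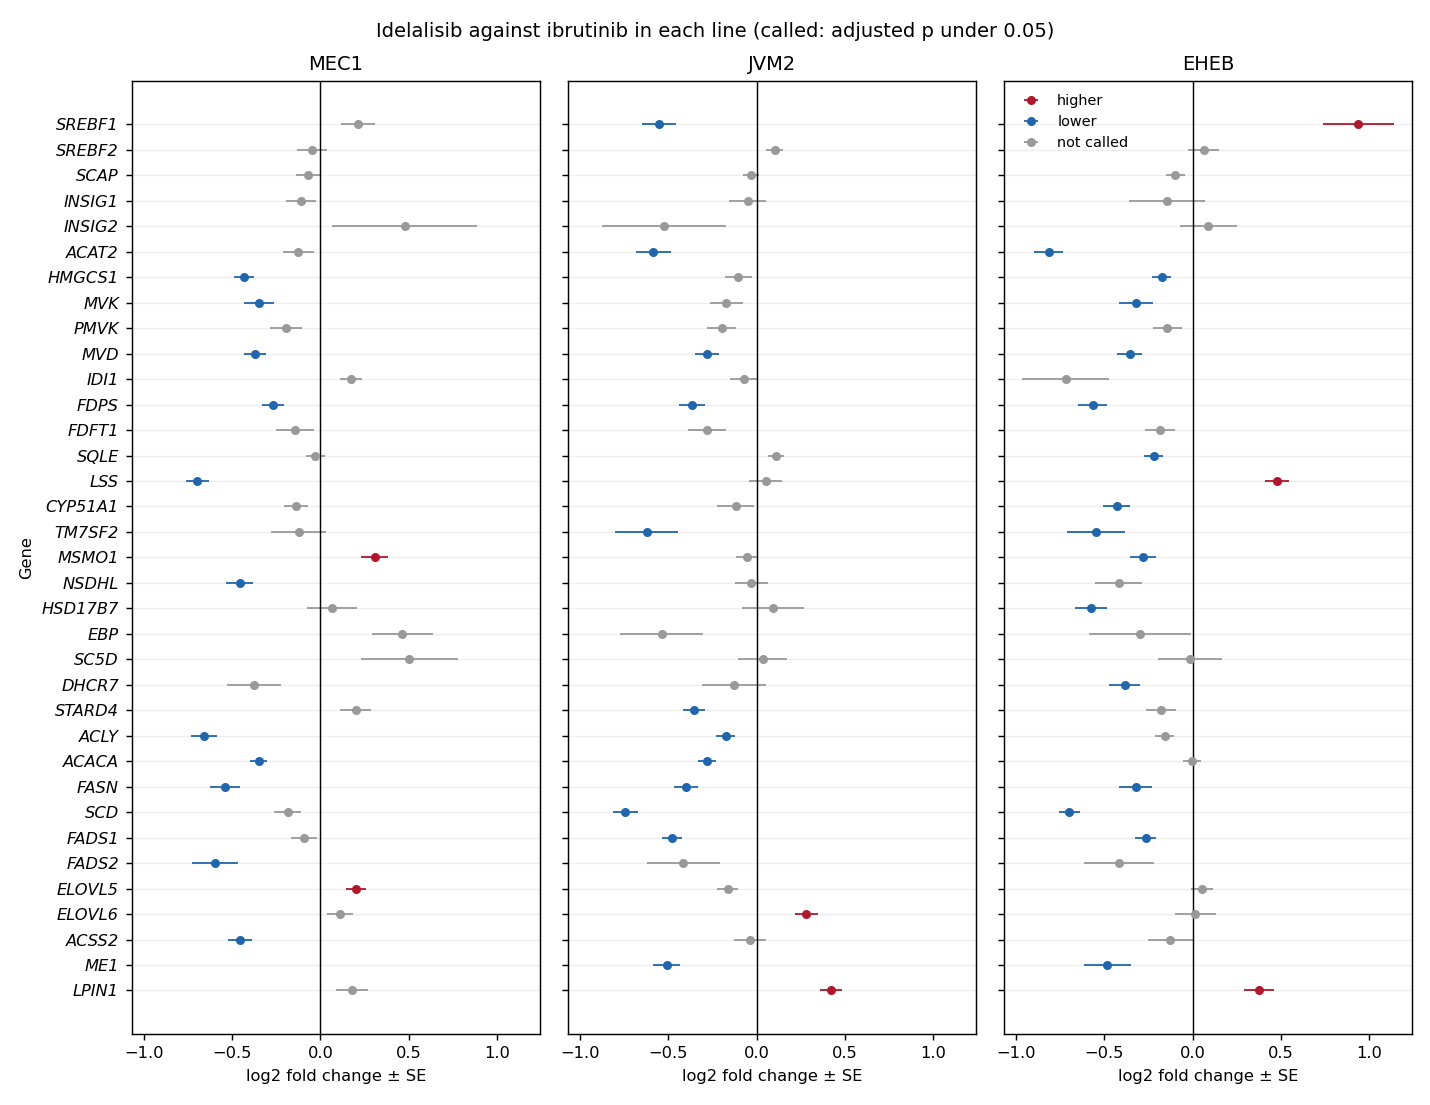
Log2 fold change of each gene with idelalisib against ibrutinib in the 3 lines, with SE as bars and colours for genes called higher, called lower or not called. FASN, MVD and FDPS lie to the left of 0 and are called in each panel, and SREBF1 lies at −0.55 in JVM2 and 0.94 in EHEB.

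Other genes of the pathway, none of them among the 35, were followed as 6 lists, and each list's counts stand beside the shares of all genes called higher and lower. Those shares were in MEC1 21.2% and 22.7% with fludarabine, 23.7% and 23.9% with ibrutinib and 27.6% and 27.4% with idelalisib, in JVM2 23.9% and 23.3% with fludarabine, 14.5% and 15% with ibrutinib and 21.6% and 22.6% with idelalisib, in EHEB 18.4% and 19.2% with fludarabine, 8.5% and 11.2% with ibrutinib and 15.1% and 18.2% with idelalisib. The median log2 fold change over all genes ran from −0.0014 to 0.081 in these 9 comparisons. Of 15 further genes that SREBPs control or that act at the same steps, the calls were in MEC1 2 higher and 8 lower of 15 tested with fludarabine, 1 higher and 7 lower of 15 with ibrutinib and 3 higher and 7 lower of 15 with idelalisib, in JVM2 0 higher and 8 lower of 15, 1 higher and 3 lower of 15 and 0 higher and 6 lower of 15, and in EHEB 2 higher and 7 lower of 14, 1 higher and 4 lower of 14 and 1 higher and 7 lower of 14, and the list's median log2 fold changes ran from −0.45 to −0.14. ALDOC, an aldolase also switched on by SREBP2, had log2 fold changes of −0.72 ± 0.051, −0.61 ± 0.051 and −1.01 ± 0.051 in MEC1 with fludarabine, ibrutinib and idelalisib, −1.07 ± 0.11, 0.10 ± 0.11 and −0.86 ± 0.11 in JVM2 and −1.60 ± 0.10, −1.02 ± 0.099 and −1.60 ± 0.10 in EHEB, and all but JVM2 with ibrutinib were called lower. SLC25A1, the mitochondrial carrier that exports citrate for ACLY, was called lower with each drug in MEC1 (−0.42 ± 0.077, −0.82 ± 0.077 and −1.14 ± 0.078) and in EHEB (−0.98 ± 0.17, −0.62 ± 0.17 and −0.74 ± 0.17) and with fludarabine in JVM2 (−0.41 ± 0.13). MID1IP1, an activator of ACACA, was called lower with each drug in MEC1 (−0.46 ± 0.089, −0.31 ± 0.089 and −0.29 ± 0.089) and with fludarabine and ibrutinib in JVM2 (−0.75 ± 0.18 and −0.76 ± 0.18), and higher with each in EHEB (0.53 ± 0.12, 0.42 ± 0.12 and 1.31 ± 0.12).

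Of 11 genes that process or degrade SREBPs and their regulators, the calls were in MEC1 3 higher and 3 lower of 11 tested with fludarabine, 4 higher and 3 lower of 11 with ibrutinib and 5 higher and 3 lower of 11 with idelalisib, in JVM2 6 higher and 3 lower of 11, 3 higher and 1 lower of 11 and 4 higher and 4 lower of 11, and in EHEB 4 higher and 2 lower of 11, 2 higher and 1 lower of 11 and 2 higher and 3 lower of 11, and the list's median log2 fold changes ran from −0.16 to 0.28. GPS2 was put in this list, but no value here shows a role for it in SREBP processing or degradation. It was called higher in 8 of the 9 comparisons (log2 fold change 0.94 ± 0.12, 0.56 ± 0.12 and 0.45 ± 0.12 in MEC1). UFD1, part of the complex that extracts ubiquitinated proteins, was also called higher in 8 (0.63 ± 0.061, 0.66 ± 0.061 and 0.61 ± 0.061 in MEC1). MBTPS1, the protease that makes the first cut in SREBP precursors, was called higher with each drug in JVM2 (0.45 ± 0.068, 0.32 ± 0.068 and 0.61 ± 0.068), with both kinase inhibitors in MEC1 (0.43 ± 0.10 and 0.40 ± 0.10) and with fludarabine and idelalisib in EHEB (0.40 ± 0.074 and 0.30 ± 0.074). Of 11 genes of the nonsterol isoprenoid branch, the calls were in MEC1 2 higher and 6 lower of 11 tested with fludarabine, 5 higher and 2 lower of 11 with ibrutinib and 5 higher and 2 lower of 11 with idelalisib, in JVM2 5 higher and 2 lower of 11, 2 higher and 2 lower of 11 and 1 higher and 2 lower of 11, and in EHEB 6 higher and 2 lower of 11, 2 higher and 0 lower of 11 and 0 higher and 3 lower of 11, and the list's median log2 fold changes ran from −0.26 to 0.30. RABGGTB, a subunit of the Rab prenyltransferase, was called lower in MEC1 with fludarabine and higher with the kinase inhibitors (−0.73 ± 0.091, 0.30 ± 0.091 and 0.47 ± 0.091), lower with both kinase inhibitors in JVM2 (−0.50 ± 0.065 and −0.68 ± 0.065), and higher with fludarabine and ibrutinib in EHEB (0.41 ± 0.064 and 0.25 ± 0.064). PGGT1B, a subunit of another prenyltransferase, was called higher with each drug in MEC1 (0.32 ± 0.075, 0.40 ± 0.075 and 0.20 ± 0.075) and JVM2 (0.19 ± 0.057, 0.35 ± 0.057 and 0.54 ± 0.057) and lower with fludarabine in EHEB (−0.39 ± 0.053). PDSS2, of ubiquinone synthesis, was called lower with fludarabine in all 3 lines (−0.96 ± 0.079, −0.50 ± 0.070 and −0.41 ± 0.10 in MEC1, JVM2 and EHEB) and with idelalisib in MEC1 and EHEB (−0.22 ± 0.077 and −0.35 ± 0.10), and higher with ibrutinib in JVM2 (0.22 ± 0.070).

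The liver X receptors sense oxysterols and switch on sterol efflux and SREBF1. Of 9 such genes and targets, the calls were in MEC1 3 higher and 3 lower of 9 tested with fludarabine, 2 higher and 4 lower of 9 with ibrutinib and 2 higher and 4 lower of 9 with idelalisib, in JVM2 3 higher and 1 lower of 8, 1 higher and 0 lower of 8 and 1 higher and 4 lower of 8, and in EHEB 4 higher and 2 lower of 9, 0 higher and 4 lower of 9 and 0 higher and 3 lower of 9, and the list's median log2 fold changes ran from −0.65 to 0.42. ABCG1, a sterol exporter, was called lower with the kinase inhibitors in MEC1 (−2.16 ± 0.13 and −1.86 ± 0.13) and EHEB (−1.28 ± 0.35 and −0.98 ± 0.35) and with idelalisib in JVM2 (−0.52 ± 0.10). It was called higher with fludarabine in MEC1 (1.22 ± 0.12). Its EHEB levels were low, at 3.67 CPM with DMSO, 1.49 with ibrutinib and 1.85 with idelalisib. ABCA1 and LPCAT3 of the same list were each called higher in 5 of the 9 comparisons and lower in 0. NR1H2 was called lower in 6 and higher in 0. MYLIP, the ligase that degrades lipoprotein receptors, was called lower with fludarabine in all 3 lines (−0.31 ± 0.055, −0.31 ± 0.11 and −0.43 ± 0.076 in MEC1, JVM2 and EHEB), with idelalisib in JVM2 (−0.73 ± 0.11) and with ibrutinib in EHEB (−0.25 ± 0.076), and higher with ibrutinib and idelalisib in MEC1 (0.20 ± 0.055 and 0.29 ± 0.055). Of 12 genes of cholesterol uptake, transport and storage, the calls were in MEC1 3 higher and 3 lower of 12 tested with fludarabine, 2 higher and 7 lower of 12 with ibrutinib and 2 higher and 7 lower of 12 with idelalisib, in JVM2 4 higher and 4 lower of 12, 3 higher and 5 lower of 12 and 1 higher and 6 lower of 12, and in EHEB 4 higher and 0 lower of 12, 1 higher and 2 lower of 12 and 2 higher and 4 lower of 12, and the list's median log2 fold changes ran from −0.41 to 0.16. NPC2, which moves cholesterol out of lysosomes, was called lower in 8 of the 9 comparisons and higher in EHEB with fludarabine (0.36 ± 0.092). LIPA, the lysosomal lipase, was called higher with each drug in MEC1 (0.27 ± 0.071, 0.31 ± 0.071 and 0.56 ± 0.071) and with fludarabine in JVM2 and EHEB (1.06 ± 0.058 and 0.36 ± 0.065). It was called lower with idelalisib in JVM2 (−0.33 ± 0.057) and with ibrutinib and idelalisib in EHEB (−0.42 ± 0.065 and −0.79 ± 0.066). GRAMD1B, a sterol transfer protein, was called higher with each drug in MEC1 and JVM2 (0.95 ± 0.087, 0.55 ± 0.087 and 0.22 ± 0.087 and 0.37 ± 0.078, 0.99 ± 0.078 and 1.51 ± 0.079) and lower with idelalisib in EHEB (−0.34 ± 0.079).

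Fatty acid oxidation is the opposing pathway. Of 16 of its genes, the calls were in MEC1 0 higher and 5 lower of 16 tested with fludarabine, 3 higher and 9 lower of 16 with ibrutinib and 2 higher and 8 lower of 16 with idelalisib, in JVM2 5 higher and 5 lower of 16, 5 higher and 2 lower of 16 and 5 higher and 6 lower of 16, and in EHEB 6 higher and 3 lower of 16, 5 higher and 4 lower of 16 and 5 higher and 6 lower of 16, and the list's median log2 fold changes ran from −0.44 to 0.15. CPT1A, which admits fatty acids to mitochondria, was called higher with each drug in JVM2 (1.77 ± 0.12, 0.63 ± 0.12 and 1.20 ± 0.12) and in EHEB (1.15 ± 0.065, 0.96 ± 0.065 and 0.90 ± 0.065), and lower with ibrutinib and idelalisib in MEC1 (−0.60 ± 0.085 and −1.38 ± 0.087). ACADVL, the very long chain acyl-CoA dehydrogenase, was called lower with the kinase inhibitors in MEC1 (−0.69 ± 0.067 and −1.07 ± 0.067) and higher with each drug in EHEB (0.64 ± 0.092, 0.59 ± 0.092 and 0.32 ± 0.092) and with fludarabine and idelalisib in JVM2 (0.64 ± 0.17 and 0.51 ± 0.17). HADH, of the same spiral, was called lower in all but EHEB with ibrutinib, at −1.12 ± 0.11, −0.35 ± 0.11 and −0.43 ± 0.11 for MEC1 and −1.32 ± 0.071, −0.41 ± 0.069 and −0.90 ± 0.070 for JVM2 on the log2 scale.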

How the data were processed

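RNA of 36 samples, depleted of ribosomal RNA, was sequenced in 12 groups of 3. Per the methods and labels, the authors trimmed reads with Trimmomatic, aligned them to hg38 with HISAT2 2.1 and quantified genes with StringTie 1.3.4. The deposited expected counts (all whole) were used unrounded. The sources used here do not give read length, strand or annotation release. Each line's 12 libraries were fitted together with edgeR 4.0.16 (R 4.3.3) after filterByExpr (minimum count 10, minimum total 15) and TMM, and quasi-likelihood tests were adjusted by Benjamini-Hochberg over all genes. Line differences used 18 libraries. SE is the absolute log2 fold change divided by the square root of F. The blank symbol held 0.00384% of counts and was left out. Alternatives were DESeq2 1.42.0, scaling without TMM, no filter, other sets of libraries and each library left out. Replicate pairs differed beyond sampling noise (chi-square per degree of freedom 24.9 to 48.9). Scripts were tested on simulated counts. Transcript lengths and overlaps came from GENCODE on GRCh38, and promoters from RefSeq (GRCh38.p14). The genes and lists were chosen with earlier results of these data known. Values by library are given for SREBF1, SREBF2, INSIG1 and INSIG2, genes called alike in 6 or more of the 9 comparisons with DMSO, the 2 largest changes of each of the 12 comparisons, and genes called past a log2 fold change of 1 in both directions, and from each list up to 3 genes called most often. One gene that this rule names is not reported here.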

Additional observations from a re-analysis of the deposited data

Results flagged for a closer look

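Each result here stands out because the effect of a drug differed between 2 lines by a test of the difference itself. With the fludarabine effect, 16 of the genes differed between EHEB and JVM2 (22.2% of all genes tested). There were 18 between EHEB and MEC1 (29.4%) and 21 between JVM2 and MEC1 (25.2%). For ibrutinib the counts were 10 (12%), 17 (26.4%) and 19 (25.9%) in the same order. For idelalisib they were 14 (21.3%), 21 (38%) and 24 (35%).

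The single genes were called in opposite directions in the 2 lines, and the values are differences of log2 fold changes, the first line minus the second. With fludarabine, EHEB minus JVM2 was −0.41 for HMGCS1 and 0.90 for ME1. EHEB minus MEC1 was 1.27 for LSS, 1.37 for HSD17B7, 1.20 for FADS1 and −1.52 for LPIN1. JVM2 minus MEC1 was 1.55 for ACAT2, 1.33 for HMGCS1, 0.87 for LSS, 2.09 for HSD17B7 and −0.71 for LPIN1. With ibrutinib, EHEB minus JVM2 was −0.66 for FDPS, EHEB minus MEC1 was −0.79 for ACAT2, and JVM2 minus MEC1 was 0.47 for FDPS and 0.48 for SQLE. With idelalisib, EHEB minus JVM2 was −0.64 for SQLE. EHEB minus MEC1 was 1.40 for LSS, −1.16 for MSMO1, −0.77 for HSD17B7, −0.73 for STARD4 and 2.23 for LPIN1. JVM2 minus MEC1 was 0.65 for SQLE, −0.63 for MSMO1 and −0.97 for STARD4. The direction within a line rests on calls whose loss without a library is given in the report. Groups of 3 libraries are too small for the test of single outlying libraries.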

How the results depend on the processing

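No paired analysis was possible because the groups share no library number. Of 416 results for single genes, recomputed in 4576 alternatives, 4178 kept their direction and their side of the threshold. Of 267 alternatives for counts of genes called in either direction, 260 stayed within 1.5 times, and of 264 for counts higher or lower in the 12 comparisons within a line, 218 did. Called directions reversed only without the TMM step, for NSDHL in MEC1 with fludarabine (0.031 on the log2 scale), MSMO1 in JVM2 with fludarabine (0.14), LPIN1 in JVM2 with fludarabine (0.018) and FASN in JVM2 with fludarabine (0.0040); of these the MSMO1 value had not passed with TMM. The counts in either direction that moved were idelalisib against ibrutinib in MEC1, with 21 genes without the TMM step (13 with it), the same comparison in EHEB, with 11 in a fit of its 2 groups and 11 with no filter (18 otherwise), and 11 to 17 with a library left out, and the ibrutinib effect in EHEB against JVM2, with 6 to 10 when a library was left out (10 otherwise; 6 without library EHEB_133, JVM2_86 or JVM2_233). Among the larger counts in 1 direction, those that moved were lower with fludarabine in JVM2 (11, but 3 without the TMM step and 7 with no filter or without library JVM2_85), higher with fludarabine in JVM2 (7, but 13 without TMM), higher with ibrutinib in JVM2 (6, but 2 with no filter and 3 without library JVM2_85 or JVM2_86), lower with fludarabine in EHEB (18, but 11 without TMM), and lower with idelalisib against ibrutinib in MEC1 (11, but 21 without TMM) and in EHEB (15, but 8 in a fit of its 2 groups or with no filter, and 8 to 9 without library EHEB_280, EHEB_282, EHEB_287 or EHEB_288). Counts of 1 to 4 genes also moved, such as higher with fludarabine in MEC1 (1, but 5 without TMM). Without TMM the calls over all genes moved as well, as given in the report. The causes were not tested. DESeq2 gave 402 single results on the same side, 13 newly called and 1 lost, and the joint fit of all libraries 390, 12 and 14. Calls kept with every library left out were 25 of 27, 17 of 20 and 23 of 28 in MEC1 with fludarabine, ibrutinib and idelalisib, 12 of 18, 9 of 14 and 15 of 17 in JVM2, and 16 of 24, 13 of 18 and 21 of 24 in EHEB.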
